A study of Mus musculus with 12 samples.

Results

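The comparison described here set 3 libraries of eYFP-positive enteroendocrine cells (EEC) against 3 libraries of eYFP-negative villus cells (non-EEC), both from the jejunum of mice kept on a normal diet. These 6 libraries, of 12 in the series, were chosen by their labels, and each of the 17087 genes that passed the filter on low counts, of 39086 genes in the table, was a member. All mice, the controls included, were males of 12 weeks on the C57BL/6N background with the genotype Neurog3eYFP/+, so that an eYFP reporter sits at the Neurog3 locus of 1 chromosome. The other 6 libraries came from mice moved to a high fat diet at 8 weeks for 4 weeks, and they entered the fit only to estimate the spread and for a closing comparison. Villi were released with EDTA, dissociated with dispase and sorted by fluorescence. The EEC replicates 1, 2 and 3 held 11570892, 9543183 and 29054281 counts and the non-EEC replicates 12830582, 11638584 and 15426107. The labels give 3 mice for each diet but tie no pair of libraries to a mouse, and p-values rest on the spread among libraries, which may be technical. The reporter marks cells that have transcribed Neurog3, and the eYFP-negative gate holds every other villus cell, epithelial or not.

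Enteroendocrine cells are scattered hormone cells of the gut lining. They descend from crypt progenitors that switch on the basic helix-loop-helix (bHLH) factor Neurog3, and later factors decide which hormones a cell makes. Like neurons, they fire action potentials, and calcium entry makes them release dense-core granules. Receptors and channels on their surface sense nutrients, bile acids, irritants and transmitters. Most other villus cells are absorptive enterocytes, with goblet and tuft cells and intraepithelial lymphocytes among them.

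The values of a gene are given in the order of replicates 1, 2 and 3 as CPM, which are counts scaled to a common library size with TMM factors. Differences are log2 fold changes of EEC over non-EEC with the standard error of the fit, and p-values from edgeR's quasi-likelihood test were adjusted by Benjamini-Hochberg over 17087 genes. A gene was called at an adjusted p below 0.05. Levels in bulk libraries cannot tell fewer cells of a type from less RNA per cell.

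The labels were checked first. Neurog3 (chromosome 10, 62133090 to 62134763) had 298, 139 and 96.2 CPM in EEC and 0.0778, 0.708 and 0.63 CPM in non-EEC, with no overlap between the groups (8.50 ± 0.93, adjusted p = 4.31e-04). Chga (chromosome 12, 102554969 to 102565028), the granule protein chromogranin A, had 2800.4, 1315 and 1742 CPM in EEC and 172, 20.4 and 8.02 CPM in non-EEC (4.87 ± 0.95, adjusted p = 0.00671). Non-EEC replicate 1 thus held more Chga than the other non-EEC libraries and less Neurog3 than either. Summed over 14 tested hormone genes and markers of hormone cells, the libraries had 87200, 22900 and 38900 CPM in EEC and 10900, 704 and 257 CPM in non-EEC. In non-EEC replicate 1 the median hormone stood at 24.9% of its EEC mean, against 1.38% and 0.537% in replicates 2 and 3. This share was not even across genes: in non-EEC replicate 1 it ran from 0.778% for Tac1, the tachykinin precursor, to 96.5% for Nts, the precursor of neurotensin. Of this list 9 of 14 were called higher in EEC, against 7.91% of all genes tested, and the count ran from 4 without non-EEC replicate 2 to 14 without non-EEC replicate 1. Called were Tac1, Chga, Tph1, Gcg (5.33 ± 1.21), Ghrl (4.62 ± 1.06), Chgb (4.51 ± 1.18), Sct (3.49 ± 1.04), Cartpt (3.17 ± 0.91) and Iapp (3.15 ± 0.88). Gip, Cck, Pyy, Nts and Sst were not called (adjusted p = 0.112, 0.261, 0.112, 0.386 and 0.129), and for each of these non-EEC replicate 1 was the highest of its group. Gcg was no longer called without non-EEC replicate 2 (adjusted p = 0.0512), Chgb without EEC replicate 1 or non-EEC replicate 2 (adjusted p = 0.0666 to 0.0834), Sct and Cartpt without EEC replicate 1 or 3 or non-EEC replicate 2 or 3 (adjusted p = 0.0517 to 0.119) and Iapp without EEC replicate 3 or non-EEC replicate 2 or 3 (adjusted p = 0.0962 to 0.162).

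The non-EEC libraries also differed in their other cell markers. Enterocyte markers summed to 25000, 18400 and 28000 CPM in EEC and 31500, 5700 and 5210 CPM in non-EEC, so that all 3 EEC libraries lay above non-EEC replicates 2 and 3. T cell markers summed to 1730, 1570 and 274 CPM in EEC and 5170, 8880 and 13000 CPM in non-EEC. Goblet cell markers summed to 4850, 3930 and 3300 CPM in EEC and 37700, 3350 and 1130 CPM in non-EEC. Non-EEC replicate 1 was therefore the library with the highest hormone, enterocyte and goblet sums of its group, and replicates 2 and 3 held the highest T cell sums. Of 27 enterocyte markers 0 were called in either direction, with a median of 0.89, and 19 were called higher in EEC without non-EEC replicate 1, with a median of 2.71. The disaccharidase Sis had 4624, 2849 and 4157 CPM in EEC and 3521, 706 and 373 CPM in non-EEC. The aminopeptidase Anpep had 3202, 2015 and 2637 CPM in EEC and 6053, 694 and 337 CPM in non-EEC. The groups overlapped for both genes, and non-EEC replicate 1 lay among or above the EEC libraries. Among markers of other cells, B cell and plasma cell markers summed to 671, 309 and 18.8 CPM in EEC and 1730, 2490 and 1660 CPM in non-EEC, myeloid markers to 354, 139 and 162 CPM in EEC and 572, 919 and 1460 CPM in non-EEC and tuft cell markers to 133, 80.9 and 35.4 CPM in EEC and 535, 252 and 204 CPM in non-EEC. The part of these cells in the differences below was not tested. Enterocyte markers called higher numbered 0 without EEC replicate 1, 2 or 3 or non-EEC replicate 2 or 3 to 19 without non-EEC replicate 1.

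**Figure D1:**
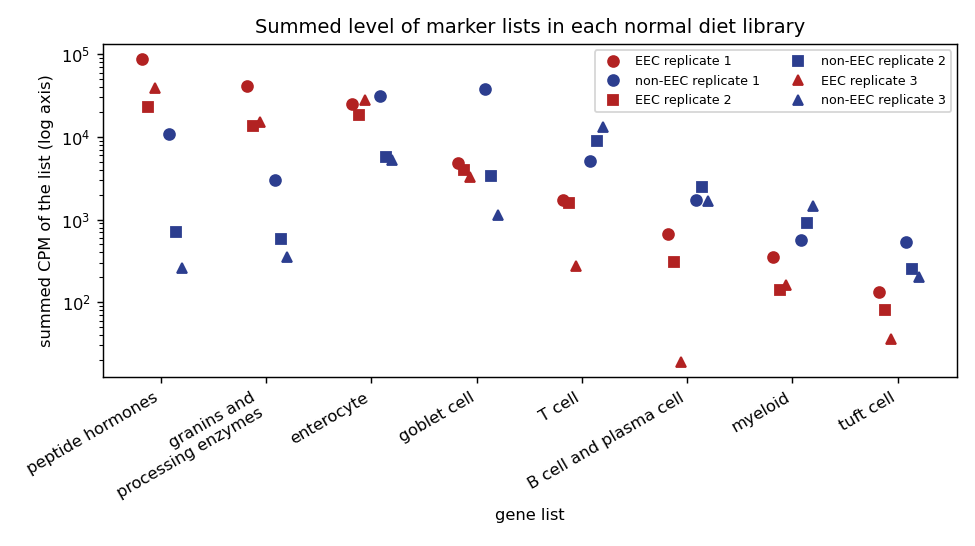
Summed CPM (vertical log axis) of marker lists (horizontal axis) in the 3 EEC libraries (red) and the 3 non-EEC libraries (blue), 1 symbol per library. Non-EEC replicate 1 (blue circle) lies at 10900 CPM for hormones, where non-EEC replicates 2 and 3 lie at 704 and 257 CPM.

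Of 17087 genes, 1351 were higher in EEC (7.91%) and 838 lower (4.9%). Leaving out non-EEC replicate 1 raised these counts to 1935 and 1106. Without non-EEC replicate 2 they were 701 and 253, without non-EEC replicate 3 they were 776 and 215, and without EEC replicate 3 they were 977 and 241. The call was kept in all 6 such runs by 769 genes, 610 higher and 159 lower. Of the 1351 higher genes, 1328 had all EEC libraries above non-EEC replicate 1, and in 532 that library stood at or below 10% of the EEC mean. Non-EEC replicate 1 entered the test that selected these genes, so these counts describe them and are no check of the calls. Over these 1351 genes the median level was 14% of the EEC mean in non-EEC replicate 1, 8.9% in replicate 2 and 4.9% in replicate 3.

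The genes with the largest differences among those called, with a mean of 10 CPM or more in the higher group, included transcription factors, signalling genes and matrix genes as well as the hormone gene Tac1. Pappa2 (chromosome 1, 158711727 to 158980490), a metalloprotease that cuts IGF-binding proteins, had 104, 82.2 and 90.6 CPM in EEC and 0.778, 0.849 and 0.286 CPM in non-EEC (7.18 ± 0.51, adjusted p = 4.13e-05). Pak3 (chromosome X, 143518591 to 143797796), a p21-activated kinase of neurons, had 117, 96.4 and 105 CPM in EEC and 1.09, 0.425 and 0.229 CPM in non-EEC (7.53 ± 0.63, adjusted p = 9.97e-05). Both genes were nearly level among the EEC libraries and did not overlap with the non-EEC libraries. Vcan (chromosome 13, 89655312 to 89742509), the matrix proteoglycan versican, had 345, 173 and 158 CPM in EEC and 1.87, 2.05 and 0.458 CPM in non-EEC (7.28 ± 0.86, adjusted p = 5.55e-04). Pnma2 (chromosome 14, 66911170 to 66921023), a neuronal antigen related to retrotransposon Gag proteins, had 40.2, 17.6 and 11 CPM in EEC and 0.0778, 0 and 0.172 CPM in non-EEC (7.89 ± 0.94, adjusted p = 5.55e-04). EEC replicate 1 was the highest for both genes, and each EEC library lay above each non-EEC library. Cxxc4 (chromosome 3, 134236484 to 134262161), a CXXC zinc finger protein that dampens Wnt signalling, had 61.5, 81.6 and 185 CPM in EEC and 2.26, 0.849 and 0.286 CPM in non-EEC (6.62 ± 0.76, adjusted p = 5.00e-04). The non-coding RNA Lhx1os, which lies beside the homeobox gene Lhx1 and may share reads with it, had 13.1, 6.93 and 13.5 CPM in EEC and 0, 0 and 0.229 CPM in non-EEC (6.90 ± 1.24, adjusted p = 0.00439). Tac1 had 1087, 901 and 1523 CPM in EEC and 9.11, 6.23 and 2.52 CPM in non-EEC (7.62 ± 0.77, adjusted p = 2.36e-04).

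Families differed widely in the share of members called. Among lists with 10 or more tested members, voltage-gated sodium channels and granins with their processing enzymes had the largest shares higher in EEC, and cadherins, mitochondrially encoded genes, enterocyte markers and Paneth cell markers had 0 called in either direction. For families with 10 or more tested members, the shares stand in the plot of called members beside the shares over all genes tested. Smaller families, the hormone list and the marker lists of other cells are not plotted.

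**Figure D2:**
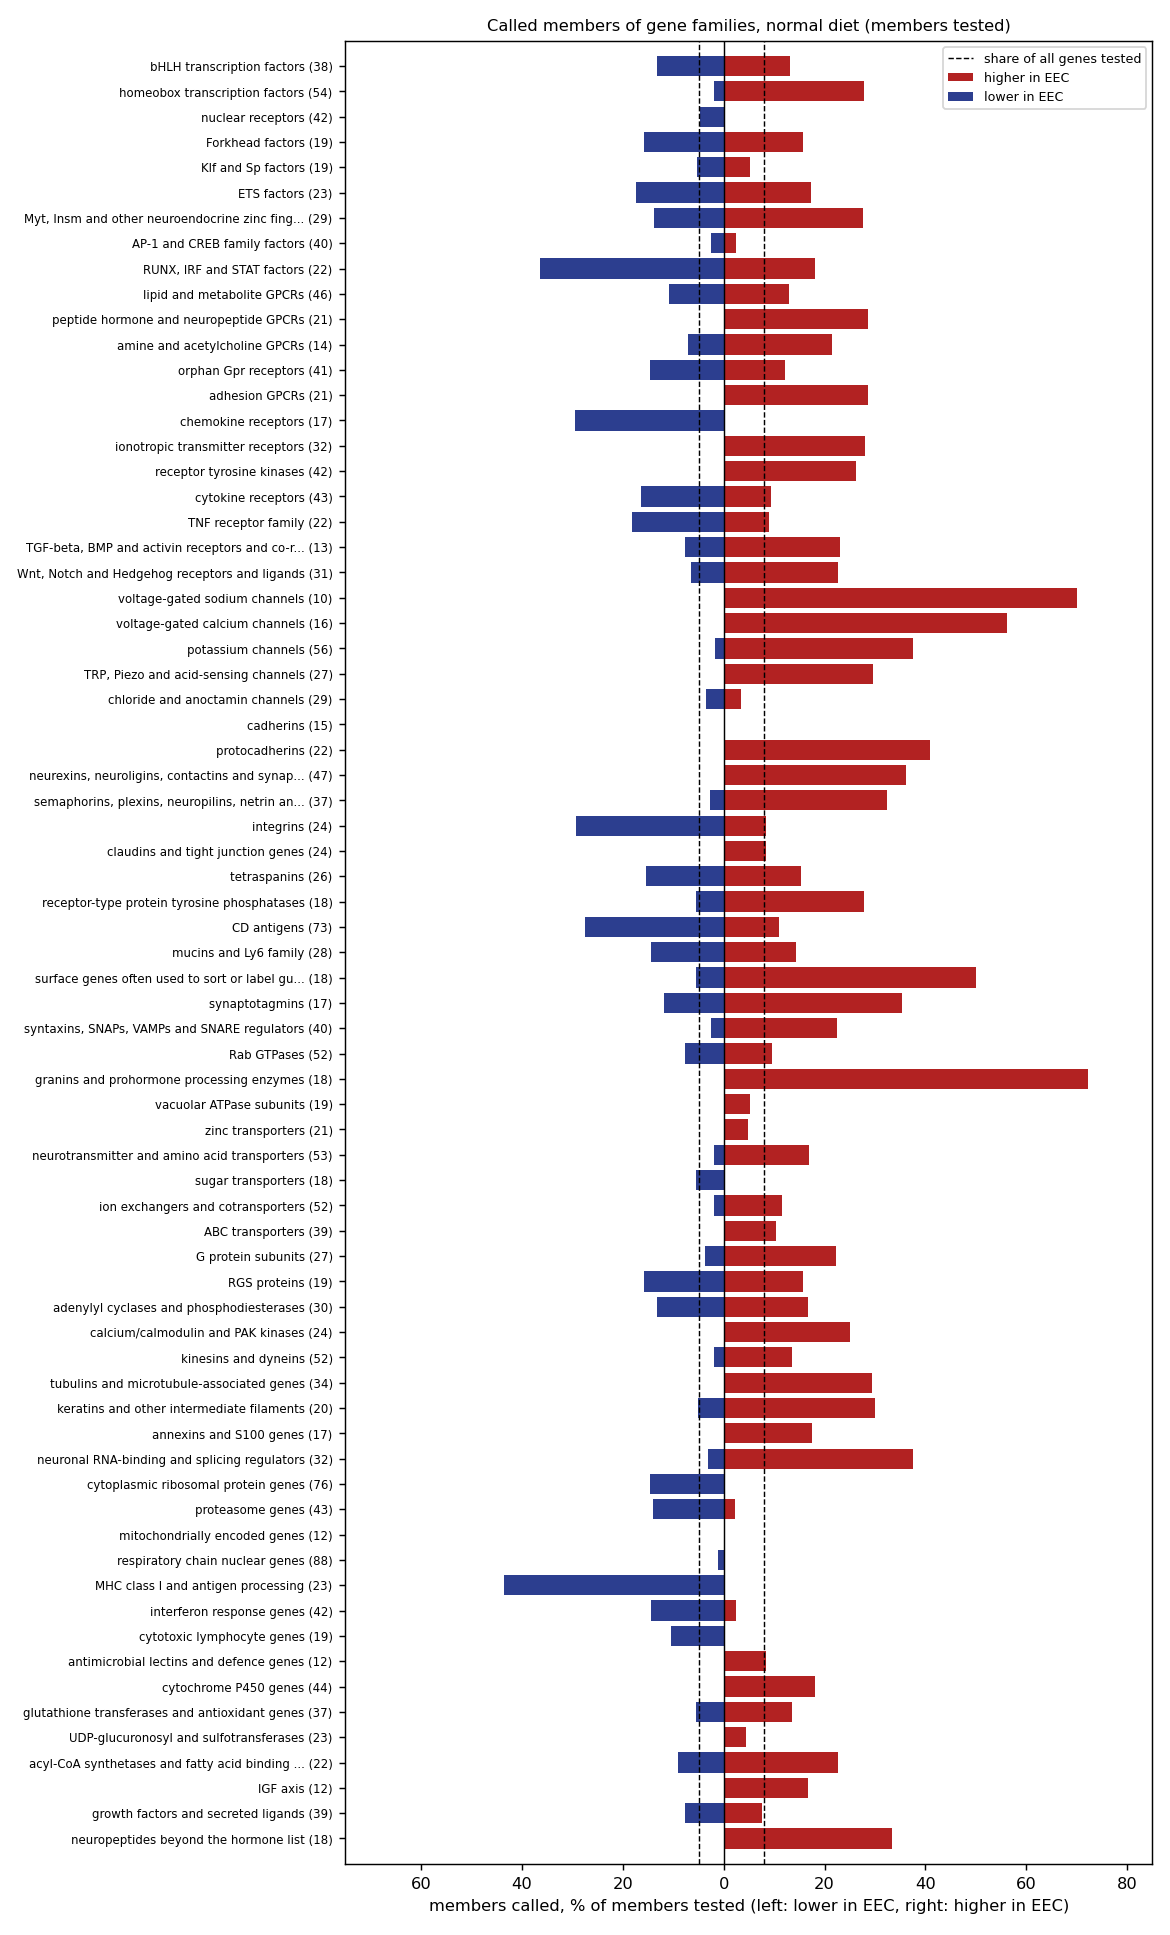
Share of tested members of each family (vertical axis, number tested in brackets) called higher (red, right) or lower (blue, left) in EEC, in percent. Dashed lines mark the 7.91% higher and 4.9% lower of all genes tested.

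Transcription factors of the endocrine lineage were among the genes with the largest differences. Of the bHLH factors 5 of 38 were higher and 5 lower. Neurod1, which follows Neurog3 in endocrine precursors, had 442, 374 and 762 CPM in EEC and 40.4, 5.52 and 3.72 CPM in non-EEC (4.99 ± 0.83, adjusted p = 0.00302). Its paralog Neurod2, best known in neurons, had 38.3, 24.1 and 26.5 CPM in EEC and 0.7, 0.0708 and 0.172 CPM in non-EEC (6.57 ± 0.80, adjusted p = 5.69e-04). Each EEC library of both genes exceeded each non-EEC library, and Neurod2 stayed below 1 CPM in all non-EEC libraries. The other higher members, named with those below after their values were seen, were Npas4 and Clock, an activity-induced factor and a circadian factor. The lower members were the growth regulator Myc, with 46, 28.3 and 18.1 CPM in EEC and 61.5, 98.1 and 140.3 CPM in non-EEC (-1.70 ± 0.48, adjusted p = 0.0341), and Bhlhe40, Srebf1, Srebf2 and Ahr (log2 fold changes -2.14 to -1.28). Myc was no longer called without EEC replicate 2 or 3 or non-EEC replicate 2 or 3 (adjusted p = 0.086 to 0.142), and 0 of the other 4 lower members kept their calls when each library was left out. Of the higher bHLH factors, 4 of 5 were called in all 6 runs leaving out a library. The bHLH factors called lower numbered 0 without EEC replicate 3 to 5 without EEC replicate 2 or non-EEC replicate 1.

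Homeobox factors were called higher in 15 of 54 members and lower in 1, with a median of 1.07 over the tested members against -0.02 over all genes. Nkx2-2, a factor needed for several hormone lineages, had 255, 318 and 464 CPM in EEC and 8.72, 2.83 and 0.687 CPM in non-EEC (6.42 ± 0.84, adjusted p = 8.50e-04). Pax4, a repressor that acts early in endocrine fate, had 21.6, 55.2 and 59.5 CPM in EEC and 0.778, 0.425 and 0.0573 CPM in non-EEC (6.79 ± 0.80, adjusted p = 5.55e-04). Lmx1b, a LIM factor of serotonergic neurons, had 16.9, 8.83 and 5.57 CPM in EEC and 0, 0 and 0.0573 CPM in non-EEC, with 1 count in the non-EEC group. The remaining higher members, with log2 fold changes of 1.75 to 5.94, included Isl1, Pax6, Lmx1a, Pdx1, Onecut3, Lhx1, Onecut2, Hopx, Prox1 and Mnx1. Isl1, Pax6 and Pdx1 are regulators shared with pancreatic islets, and 8 of the 12 remaining members stayed called whichever library was left out. Of all 15 higher members, 13 were also called higher in the high fat diet libraries, against 67.9% of all genes higher under the normal diet. The single lower member was Zeb2 (-2.14 ± 0.63), a repressor of epithelial genes that is also present in lymphocytes. Zeb2 was no longer called without EEC replicate 1, 2 or 3 or non-EEC replicate 2 or 3 (adjusted p = 0.0734 to 0.172). Of 4 tested Hox cluster genes 0 were called.

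Zinc finger factors of the neuroendocrine list were higher in 8 of 29 members and lower in 4. Insm1, a repressor required for endocrine differentiation, had 161, 176 and 399 CPM in EEC and 2.49, 1.98 and 1.09 CPM in non-EEC (7.05 ± 0.58, adjusted p = 9.97e-05). St18, a Myt family factor, had 286, 202 and 287 CPM in EEC and 18.8, 6.09 and 3.32 CPM in non-EEC (4.79 ± 0.62, adjusted p = 8.50e-04). Glis3, which acts in pancreatic beta cells, had 124, 86.3 and 84 CPM in EEC and 13.5, 6.3 and 3.38 CPM in non-EEC (3.67 ± 0.48, adjusted p = 8.50e-04). In all 3 genes non-EEC replicate 1 was the highest of its group and lay below the lowest EEC library. The other higher members were Myt1, Zfp92, Zbtb20, Peg3 and Zfp704. The lower ones were Ikzf1, Rest, Prdm1 and Ikzf3, among them the lymphoid Ikaros factors Ikzf1 and Ikzf3. Of the higher neuroendocrine zinc finger factors, 7 of 8 were called in all 6 runs leaving out a library. Neuroendocrine zinc finger factors called lower numbered 2 without EEC replicate 3 or non-EEC replicate 2 or 3 to 6 without non-EEC replicate 1, with 2 of 4 called in all 6 runs. Ikzf3 was no longer called without EEC replicate 2 or 3 or non-EEC replicate 2 or 3 (adjusted p = 0.102 to 0.134).

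RFX factors, which drive genes of cilia and of islet cells, were higher in 3 of 6 members (50%, against 7.91% of all genes tested). Rfx6 had 331, 445 and 642 CPM in EEC and 16.8, 5.73 and 1.37 CPM in non-EEC (5.89 ± 0.87, adjusted p = 0.00156). Rfx3 had 200.4, 336 and 387 CPM in EEC and 18.7, 45.8 and 27.8 CPM in non-EEC (3.32 ± 0.45, adjusted p = 0.00102). For Rfx3, unlike Rfx6, non-EEC replicate 2 was the highest of its group. Rfx2 had 25.3, 23.5 and 18.8 CPM in EEC and 2.18, 8.56 and 8.25 CPM in non-EEC (1.83 ± 0.50, adjusted p = 0.0308). Rfx2 was no longer called without EEC replicate 1, 2 or 3 or non-EEC replicate 2 or 3 (adjusted p = 0.0531 to 0.059).

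ETS factors were split, with 4 of 23 higher and 4 lower. Fev, the ETS factor of serotonin cells, had 202, 109 and 103 CPM in EEC and 8.41, 0.637 and 0.63 CPM in non-EEC (5.44 ± 0.91, adjusted p = 0.00301). Etv5, which responds to growth factor signalling, had 42.8, 35 and 44.3 CPM in EEC and 6.85, 5.59 and 5.56 CPM in non-EEC (2.76 ± 0.44, adjusted p = 0.00243), and Etv1 and Etv4 of the same subfamily were also higher. Etv3, a repressor, had 34.7, 39.8 and 30 CPM in EEC and 97.3, 113 and 120.5 CPM in non-EEC (-1.66 ± 0.29, adjusted p = 0.00404), and Elf4, Elk3 and Elk4 were lower as well. The 3 non-EEC libraries lay at 5.56 to 6.85 CPM for Etv5 and at 97.3 to 120.5 CPM for Etv3. The part of other cells in these levels was not tested. Forkhead factors were also split, 3 and 3 of 19. The pioneer factor Foxa1 had 102, 77.9 and 131 CPM in EEC and 12.2, 6.09 and 2.46 CPM in non-EEC (3.91 ± 0.59, adjusted p = 0.00179). Its paralog Foxa2 had 30.3, 22.3 and 32.2 CPM in EEC and 6.23, 1.42 and 0.916 CPM in non-EEC (3.32 ± 0.69, adjusted p = 0.00941). Foxq1 was higher by 3.34 ± 0.71 (adjusted p = 0.0105), and Foxk1, Foxo3 and Foxm1 were lower. Of the higher ETS factors, 3 of 4 were called in all 6 runs leaving out a library. ETS factors called lower numbered 1 without EEC replicate 3 to 5 without non-EEC replicate 1, with 1 of 4 called in all 6 runs. Forkhead factors called higher numbered 3 without EEC replicate 2 or 3 or non-EEC replicate 2 or 3 to 5 without non-EEC replicate 1. Forkhead factors called lower numbered 0 without EEC replicate 2 or 3 or non-EEC replicate 2 to 3 without EEC replicate 1, with 0 of 3 called in all 6 runs.

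Further single members stood out in other families. Sox4, a factor of progenitors and of endocrine precursors, had 31.8, 32.6 and 29.6 CPM in EEC and 2.26, 4.25 and 1.32 CPM in non-EEC (3.59 ± 0.54, adjusted p = 0.00185), and Sox13 was higher by 1.95 ± 0.53 (adjusted p = 0.0306). Klf12 had 5.36, 14.3 and 17.5 CPM in EEC and 0.311, 0.637 and 0.458 CPM in non-EEC (4.70 ± 0.61, adjusted p = 8.50e-04), whereas Sp2 was lower (-1.0 ± 0.29, adjusted p = 0.0358). The corepressor Runx1t1 had 283, 215 and 245 CPM in EEC and 9.03, 2.62 and 0.344 CPM in non-EEC (5.97 ± 0.98, adjusted p = 0.00271), and its relatives Cbfa2t3 and Cbfa2t2 were higher too. Runx1, a factor of blood cells, went the other way and had 12.4, 13.2 and 3.17 CPM in EEC and 34.6, 71 and 124 CPM in non-EEC (-3.01 ± 0.63, adjusted p = 0.00932). The unfolded protein sensor Atf6 had 545, 356 and 322 CPM in EEC and 125, 111 and 72.8 CPM in non-EEC (1.99 ± 0.35, adjusted p = 0.00424). The clock-linked repressor Nfil3 had 5.17, 5.89 and 6.41 CPM in EEC and 16.2, 14.4 and 36.8 CPM in non-EEC (-1.95 ± 0.51, adjusted p = 0.0257). Sox13 was no longer called without EEC replicate 1 or 3 or non-EEC replicate 2 or 3 (adjusted p = 0.0519 to 0.0948), Sp2 without EEC replicate 2 or 3 or non-EEC replicate 2 or 3 (adjusted p = 0.0781 to 0.171) and Nfil3 without EEC replicate 1, 2 or 3 or non-EEC replicate 3 (adjusted p = 0.0627 to 0.141). Among 42 nuclear receptors 0 were higher, and the retinoid receptor Rarg (-3.50 ± 0.82) and Rora (-2.22 ± 0.60), a factor of innate lymphoid cells, were lower. Rarg was no longer called without non-EEC replicate 2 or 3 (adjusted p = 0.0526 to 0.0658) and Rora without EEC replicate 1, 2 or 3 or non-EEC replicate 2 or 3 (adjusted p = 0.055 to 0.171). Nuclear receptors called higher numbered 0 without EEC replicate 1, 2 or 3 or non-EEC replicate 2 or 3 to 5 without non-EEC replicate 1. Cbfa2t2 was no longer called without non-EEC replicate 2 or 3 (adjusted p = 0.053 to 0.0569).

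**Figure D3:**
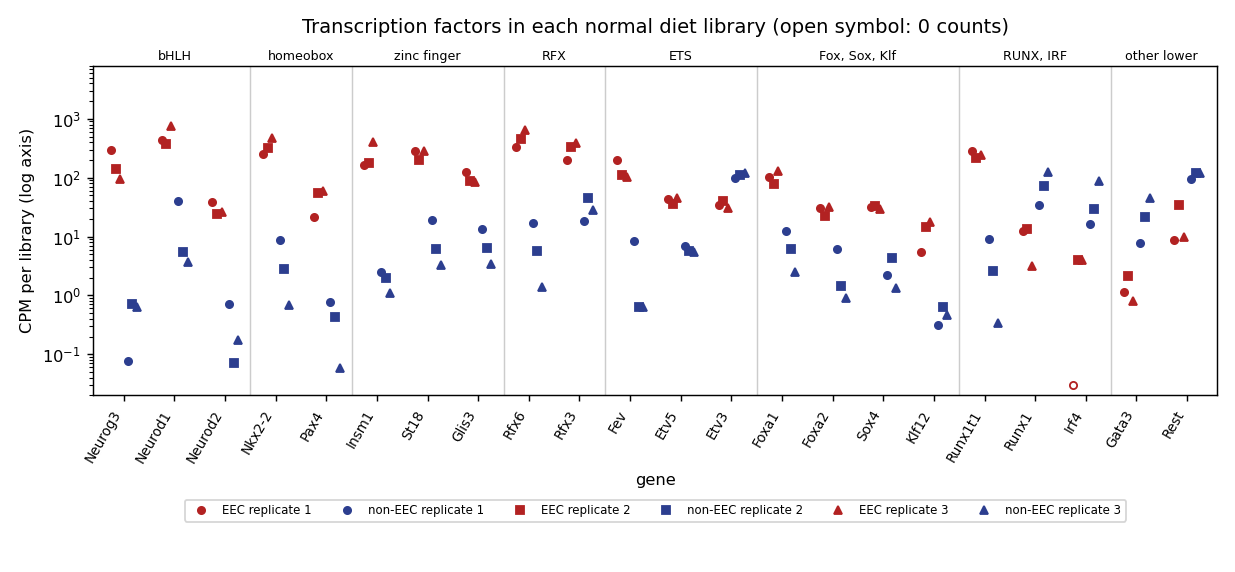
CPM (vertical log axis) of transcription factors (horizontal axis) in the 3 EEC (red) and 3 non-EEC (blue) libraries, 1 symbol per library and replicate. Neurog3 lies at 298, 139 and 96.2 CPM in EEC, and the rightmost genes Gata3 and Rest have their blue symbols above the red ones.

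Receptors for peptide hormones were higher in 6 of 21 tested members, with 0 lower and a median of 2.66. Galr1, a receptor for galanin, had 45.7, 32.7 and 80.1 CPM in EEC and 2.18, 0.495 and 0.344 CPM in non-EEC (5.74 ± 0.74, adjusted p = 8.50e-04). Npy1r, a receptor for neuropeptide Y and peptide YY, had 13, 22.9 and 32.8 CPM in EEC and 2.33, 2.34 and 1.49 CPM in non-EEC (3.48 ± 0.46, adjusted p = 8.50e-04). Sstr5, a somatostatin receptor, had 13.7, 13.5 and 20.6 CPM in EEC and 2.49, 0.142 and 0.0573 CPM in non-EEC (4.18 ± 0.93, adjusted p = 0.013). Avpr1b, the vasopressin receptor best known in the pituitary, had 38.2, 16.7 and 23.4 CPM in EEC and 0.233, 0 and 0 CPM in non-EEC, from 3 counts in the non-EEC group. Gipr, the receptor for the hormone GIP, was chosen after its values were seen and had 10.5, 13.5 and 19.2 CPM in EEC and 0.233, 0.283 and 0.0573 CPM in non-EEC (6.21 ± 1.02, adjusted p = 0.00272). Sstr1 was the sixth, at 3.48 ± 0.88 (adjusted p = 0.0226). All 6 were also called higher under the high fat diet, against 67.9% of all higher genes. Each had the EEC libraries above the non-EEC ones under the normal diet. Sstr1 was no longer called without non-EEC replicate 2 (adjusted p = 0.0757).

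Lipid and metabolite receptors were called higher in 6 of 46 members and lower in 5. Ffar2, a sensor of short-chain fatty acids, had 75, 43.8 and 63.3 CPM in EEC and 7.47, 1.42 and 0.63 CPM in non-EEC (4.27 ± 0.78, adjusted p = 0.00483). Cnr1, the cannabinoid receptor of neurons, had 25.1, 35.3 and 83.7 CPM in EEC and 7.08, 1.84 and 0.458 CPM in non-EEC (3.95 ± 0.86, adjusted p = 0.0117). Gpr119, a sensor of lipid amides, had 43.9, 21.3 and 31 CPM in EEC and 3.58, 0 and 0.229 CPM in non-EEC (4.68 ± 1.23, adjusted p = 0.0264). Gpbar1, the membrane bile acid receptor, had 0.282, 2.94 and 4.2 CPM in EEC and 0.156, 0 and 0.229 CPM in non-EEC (4.17 ± 1.13, adjusted p = 0.0299). The EEC libraries exceeded all non-EEC libraries for each of these, though Gpbar1 was low in all libraries. Ptger3, a prostaglandin receptor, was higher (5.05 ± 1.20), as was the adenosine receptor Adora3 (2.61 ± 0.70). Ptger4, another prostaglandin receptor, went the other way, with 49.8, 49.3 and 42.9 CPM in EEC and 99.2, 153 and 309.9 CPM in non-EEC (-1.99 ± 0.41, adjusted p = 0.00862). The lower members also held Gpr55 (-3.36 ± 0.77) and the lymphocyte receptors S1pr2, P2ry10 and S1pr4. The number of higher members ran from 1 without non-EEC replicate 2 to 11 without non-EEC replicate 1. Cnr1 was no longer called without non-EEC replicate 2 (adjusted p = 0.0516), Gpr119 without EEC replicate 1 or non-EEC replicate 2 or 3 (adjusted p = 0.0502 to 0.0795), Gpbar1 and Ptger3 without EEC replicate 3 or non-EEC replicate 2 or 3 (adjusted p = 0.0612 to 0.0915) and Adora3 without EEC replicate 2 or 3 or non-EEC replicate 1, 2 or 3 (adjusted p = 0.0555 to 0.101). Gpr119, Gpbar1, Ptger3 and Adora3 were named after their values were seen, as were the fatty acid receptors Ffar1 (3.79 ± 1.18, adjusted p = 0.0508) and Ffar4 (2.49 ± 0.91, adjusted p = 0.0893) and the calcium sensor Casr (3.34 ± 1.33, adjusted p = 0.116), which were not called. Lipid and metabolite GPCRs called lower numbered 2 without EEC replicate 3 or non-EEC replicate 2 or 3 to 6 without EEC replicate 2 or non-EEC replicate 1, with 2 of 5 called in all 6 runs.

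Adhesion G protein coupled receptors, large receptors that bind neighbouring cells or matrix, were higher in 6 of 21 members and lower in 0. Adgrg4 had 1879, 925 and 1475 CPM in EEC and 157, 16.5 and 4.93 CPM in non-EEC (4.59 ± 0.99, adjusted p = 0.0111). Celsr3, a planar polarity receptor of developing axons, had 50.7, 100 and 70.2 CPM in EEC and 15.8, 4.46 and 0.859 CPM in non-EEC (3.39 ± 0.73, adjusted p = 0.0109). Adgrf5 had 95.6, 54.9 and 127 CPM in EEC and 14.9, 2.48 and 0.286 CPM in non-EEC (3.99 ± 0.99, adjusted p = 0.0212), and Celsr2, Adgrl2 and Adgrg1 made up the rest. Their number ran from 2 without non-EEC replicate 2 to 7 without non-EEC replicate 1. Among orphan receptors 5 of 41 were higher (12.2%, against 7.91% of all genes tested) and 6 lower (14.6%, against 4.9%). Gpr22 had 43.1, 34.5 and 70.1 CPM in EEC and 6.77, 6.93 and 2.98 CPM in non-EEC (3.15 ± 0.48, adjusted p = 0.00185). Gpr75 had 44.2, 2.17 and 3.33 CPM in EEC and 0.389, 0.0708 and 0.172 CPM in non-EEC (6.26 ± 1.32, adjusted p = 0.00958), a level set mainly by EEC replicate 1. Of amine and acetylcholine receptors 3 of 14 were higher: the histamine receptor Hrh3 (5.79 ± 1.27), the muscarinic receptor Chrm4 (3.97 ± 1.05) and the trace amine receptor Taar1, which had 0.658, 2.43 and 0.809 CPM in EEC and 0, 0.0708 and 0 CPM in non-EEC. The beta-adrenergic receptor Adrb1 was lower, with 2.35, 2.86 and 1.34 CPM in EEC and 24.4, 22.1 and 41.5 CPM in non-EEC (-3.76 ± 0.97, adjusted p = 0.0241). Adgrf5 and Hrh3 were no longer called without non-EEC replicate 2 (adjusted p = 0.0539 to 0.0771), Chrm4 without EEC replicate 3 or non-EEC replicate 2 or 3 (adjusted p = 0.0693 to 0.0912), Taar1 without non-EEC replicate 2 or 3 (adjusted p = 0.0512 to 0.0829) and Adrb1 without EEC replicate 1, 2 or 3 or non-EEC replicate 2 or 3 (adjusted p = 0.0526 to 0.0884). Of the higher adhesion GPCRs, 2 of 6 were called in all 6 runs leaving out a library. Orphan Gpr receptors called higher numbered 2 without non-EEC replicate 2 or 3 to 7 without EEC replicate 1. Orphan Gpr receptors called lower numbered 1 without non-EEC replicate 2 or 3 to 8 without non-EEC replicate 1. Amine and acetylcholine GPCRs called higher numbered 0 without non-EEC replicate 2 to 4 without non-EEC replicate 1.

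Receptor tyrosine kinases were higher in 11 of 42 members and lower in 0, with a median of 0.63. Epha7, an ephrin receptor of axon guidance, had 46.4, 20.9 and 12.8 CPM in EEC and 0.856, 0.425 and 0.0573 CPM in non-EEC (5.92 ± 0.78, adjusted p = 8.60e-04). Epha3 had 2.44, 2.69 and 1.68 CPM in EEC and 0.0778, 0.142 and 0 CPM in non-EEC. Ror2, a receptor for non-canonical Wnt ligands, had 9.4, 20.9 and 16 CPM in EEC and 0.7, 0.92 and 0.344 CPM in non-EEC (4.55 ± 0.61, adjusted p = 9.68e-04). These 3 genes stayed below 1 CPM in every non-EEC library. The other higher members were Fgfr3, Egfr, Ephb3, Ror1, Epha4, Ddr1, Ltk and Ret, with log2 fold changes of 1.65 to 4.79. Of these 8, 0 kept the call in every run that left out a library. The count of the family ran from 5 without non-EEC replicate 2 or 3 to 12 without non-EEC replicate 1. Of their ephrin ligands 0 of 6 were called.

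Cytokine receptors were called higher in 4 of 43 members (9.3%), near the 7.91% of all genes tested. They were called lower in 7 (16.3%, against 4.9%), and the directions held receptors of different kinds. Il6ra, the receptor chain that binds interleukin 6, had 80.3, 47.6 and 36.7 CPM in EEC and 4.67, 1.77 and 2.75 CPM in non-EEC (4.16 ± 0.48, adjusted p = 5.00e-04). Ghr, the growth hormone receptor, had 154, 168 and 347 CPM in EEC and 16.7, 14.6 and 3.21 CPM in non-EEC (4.28 ± 0.58, adjusted p = 0.00101). Il18r1 had 147, 93 and 63.8 CPM in EEC and 3.89, 2.83 and 13 CPM in non-EEC (3.93 ± 0.64, adjusted p = 0.00266), and Il1r1 was higher as well (2.85 ± 0.81). Lower were Crlf2, Il12rb1, Il21r, Ifngr1, Il2rg, Il4ra and Il12rb2, most of them receptors of lymphocytes, and 0 of these 7 kept the call in every run. In the TNF receptor family the decoy receptor Tnfrsf11b (osteoprotegerin) had 23.6, 21 and 31.6 CPM in EEC and 1.09, 1.13 and 0.286 CPM in non-EEC (4.94 ± 0.55, adjusted p = 4.97e-04). Tnfrsf9, a co-stimulator of T cells, had 5.17, 6.15 and 1.49 CPM in EEC and 60.7, 64.7 and 81.4 CPM in non-EEC (-4.03 ± 0.56, adjusted p = 0.0011). The B cell receptor Tnfrsf13c had 0.47, 1.04 and 0.0933 CPM in EEC and 4.75, 16.2 and 22.2 CPM in non-EEC (-4.81 ± 1.07, adjusted p = 0.0127). Tnfrsf1b had 14.3, 24.5 and 3.11 CPM in EEC and 103, 131 and 181 CPM in non-EEC (-3.32 ± 0.73, adjusted p = 0.0126). Chemokine receptors were lower in 5 of 17 members and higher in 0, and the lower ones included Cxcr3 (-4.40 ± 1.27), Cxcr6 (-3.13 ± 0.78), Ccr9 (-2.50 ± 0.66) and Ccr2 (-4.50 ± 1.25). Their number ran from 0 without non-EEC replicate 2 or 3 to 5 without non-EEC replicate 1. Cytokine receptors called lower numbered 0 without EEC replicate 3 or non-EEC replicate 3 to 6 without EEC replicate 2 or non-EEC replicate 1. Il1r1 was no longer called without EEC replicate 1 or 3 or non-EEC replicate 2 or 3 (adjusted p = 0.0603 to 0.122), Cxcr3 without EEC replicate 1 or non-EEC replicate 2 or 3 (adjusted p = 0.0832 to 0.115), Cxcr6 without non-EEC replicate 2 or 3 (adjusted p = 0.0557 to 0.0918), Ccr9 without EEC replicate 2 or 3 or non-EEC replicate 2 or 3 (adjusted p = 0.0639 to 0.0962) and Ccr2 without EEC replicate 1, 2 or 3 or non-EEC replicate 2 or 3 (adjusted p = 0.0566 to 0.117).

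Developmental signalling receptors and ligands were higher in 7 of 31 members of the Wnt, Notch and Hedgehog list and lower in 2. Dner, a neuronal relative of the Notch ligands, had 28.3, 27.1 and 39.6 CPM in EEC and 2.41, 0.495 and 0.229 CPM in non-EEC (4.94 ± 0.94, adjusted p = 0.00605). Dll4, a Notch ligand, had 50.3, 28 and 26.4 CPM in EEC and 10.7, 2.05 and 2.41 CPM in non-EEC (2.79 ± 0.60, adjusted p = 0.0102). The ligand Wnt3 had 14.8, 14.3 and 32.1 CPM in EEC and 2.18, 0.354 and 0.0573 CPM in non-EEC (4.59 ± 0.98, adjusted p = 0.0102). The Wnt receptors Fzd3, Lrp6, Fzd6 and Fzd1 were higher, and the receptors Notch2 and Notch1 were lower (-1.94 ± 0.46 and -2.12 ± 0.54). Notch1 and Notch2 were no longer called without EEC replicate 2 or 3 or non-EEC replicate 2 or 3 (adjusted p = 0.0551 to 0.0826). Of the TGF-beta superfamily list 3 of 13 were higher, the BMP receptor Bmpr1a, with 308, 203 and 294 CPM in EEC and 84.5, 57.1 and 19.5 CPM in non-EEC (2.32 ± 0.46, adjusted p = 0.00715), the decoy Bambi (2.51 ± 0.69) and Acvr1c (1.93 ± 0.53). Tgfbr2 was lower, with 61.7, 18.5 and 14.2 CPM in EEC and 106, 148 and 205 CPM in non-EEC (-2.28 ± 0.57, adjusted p = 0.0204). Bambi and Acvr1c were no longer called without EEC replicate 3 or non-EEC replicate 2 or 3 (adjusted p = 0.0529 to 0.118) and Tgfbr2 without EEC replicate 2 or 3 or non-EEC replicate 2 or 3 (adjusted p = 0.0545 to 0.0747). Wnt, Notch and Hedgehog genes called higher numbered 4 without non-EEC replicate 3 to 10 without non-EEC replicate 1, with 3 of 7 called in all 6 runs. TGF-beta list members called higher numbered 1 without EEC replicate 3 or non-EEC replicate 3 to 6 without non-EEC replicate 1.

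Voltage-gated sodium channels were higher in 7 of 10 tested members, with a median of 5.10. All 7 were also called higher under the high fat diet, against 67.9% of all higher genes. Scn3a had 255, 373 and 439 CPM in EEC and 10, 4.46 and 1.2 CPM in non-EEC (6.09 ± 0.70, adjusted p = 5.00e-04). Scn8a had 13.3, 13.9 and 13 CPM in EEC and 0.7, 0.0708 and 0 CPM in non-EEC (5.74 ± 0.98, adjusted p = 0.00338). Scn2a had 2.35, 4.07 and 4.23 CPM in EEC and 0, 0 and 0 CPM in non-EEC, with 0 counts in the non-EEC group, at least 52.6-fold higher against a floor of 3 counts over that group. The other members called were Scn7a, Scn1a, Nalcn and Scn3b, among them the leak channel Nalcn. The groups did not overlap for any of these 3 channels, and each non-EEC library had about 10 CPM or less of Scn3a. Voltage-gated sodium channels called higher numbered 4 without non-EEC replicate 2 or 3 to 7 without EEC replicate 1 or 2 or non-EEC replicate 1, with 4 of 7 called in all 6 runs. Nalcn was no longer called without EEC replicate 3 or non-EEC replicate 2 or 3 (adjusted p = 0.0723 to 0.0926).

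Calcium channel subunits were higher in 9 of 16 members, and the count was 8 without EEC replicate 1 or non-EEC replicate 3 to 9 without EEC replicate 2 or 3 or non-EEC replicate 1 or 2. Cacna1a, the pore of P/Q-type channels, had 467, 515 and 349 CPM in EEC and 30.2, 15.4 and 6.01 CPM in non-EEC (4.69 ± 0.56, adjusted p = 5.55e-04). Cacna1d, an L-type pore, had 79.4, 52.1 and 39.5 CPM in EEC and 5.53, 5.66 and 2.75 CPM in non-EEC (3.62 ± 0.49, adjusted p = 0.00102). The auxiliary subunit Cacng4 had 11.8, 13.3 and 14.9 CPM in EEC and 1.25, 0.708 and 0.515 CPM in non-EEC (4.02 ± 0.53, adjusted p = 9.06e-04). Pores of the N-type (Cacna1b), T-type (Cacna1h) and L-type (Cacna1c) and the subunits Cacna2d1, Cacnb2 and Cacnb3 completed the list, with log2 fold changes of 2.74 to 5.85. Of these 6, 5 kept the call in every run. Cacnb3 was no longer called without EEC replicate 1 or non-EEC replicate 2 or 3 (adjusted p = 0.0568 to 0.0895).

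Potassium channels were higher in 21 of 56 members and lower in 1. Kcnh6, an ERG-type channel, had 98.2, 164 and 130.1 CPM in EEC and 6.85, 2.12 and 1.2 CPM in non-EEC (5.28 ± 0.56, adjusted p = 4.06e-04). Kcnh8 had 15.4, 22.6 and 23.7 CPM in EEC and 1.01, 0.142 and 0.115 CPM in non-EEC (5.63 ± 0.79, adjusted p = 0.0011). Kcnt1, a sodium-activated channel, had 3.85, 26.9 and 20 CPM in EEC and 0.311, 0.212 and 0 CPM in non-EEC (6.61 ± 1.11, adjusted p = 0.00302). Kcnmb2, a subunit of BK channels, had 6.11, 4.85 and 5.57 CPM in EEC and 0, 0.142 and 0.115 CPM in non-EEC (5.83 ± 0.96, adjusted p = 0.00277). The other higher members included Kcns2, Kcnb2, Kcnc1, Kcnd1, Kcnv2, Kcnh7, Kcng2, Kcnj11, Kcnj2, Kcnk16, Kcnj3, Kcnma1, Kcnq3, Kcnh2 and Kcnj5. They take in Kcnj11 (4.02 ± 0.90), the pore of the ATP-sensitive channel, whose regulatory subunit Abcc8 had 46.9, 126 and 124 CPM in EEC and 17, 2.97 and 0.286 CPM in non-EEC (3.88 ± 0.96, adjusted p = 0.02). The number of higher potassium channels ran from 11 without non-EEC replicate 2 to 22 without non-EEC replicate 1. Kcnj11 was no longer called without non-EEC replicate 2 or 3 (adjusted p = 0.0593 to 0.064) and Abcc8 without non-EEC replicate 2 (adjusted p = 0.0745). Of the higher potassium channels, 8 of 21 were called in all 6 runs leaving out a library.

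Sensory cation channels were higher in 8 of 27 members of the TRP, Piezo and acid-sensing list and lower in 0. Trpa1, the irritant sensor of enterochromaffin cells, had 496, 214 and 231 CPM in EEC and 10.1, 1.27 and 0.745 CPM in non-EEC (6.29 ± 0.91, adjusted p = 0.00142). Trpc7 had 81, 31.4 and 6.19 CPM in EEC and 0.156, 0.566 and 0.115 CPM in non-EEC (7.12 ± 0.96, adjusted p = 9.82e-04), with a wide spread among the EEC libraries. Trpm2 had 65, 137 and 106 CPM in EEC and 12.1, 11.7 and 5.67 CPM in non-EEC (3.39 ± 0.49, adjusted p = 0.0013). The rest were Trpc5, Trpc4, Trpc1, Asic5 and Pkd2, with log2 fold changes of 1.15 to 5.43. Ionotropic transmitter receptors were higher in 9 of 32 members and lower in 0. Gabre had 8.93, 22.3 and 19 CPM in EEC and 0.7, 1.27 and 0.458 CPM in non-EEC (4.36 ± 0.60, adjusted p = 0.00102). Gabrb2 had 5.64, 7.71 and 4.48 CPM in EEC and 0.0778, 0 and 0 CPM in non-EEC, with 1 count in the non-EEC group. Gabra2 had 4.79, 3.03 and 1.27 CPM in EEC and 0, 0 and 0 CPM in non-EEC, with 0 counts in the non-EEC group (at least 44.9-fold higher). The glutamate receptor genes Grik5, Grik4, Grid1 and Grin2c and the nicotinic subunit Chrnb2 were called as well. Chloride channels showed 1 higher, Clcn5 (2.31 ± 0.44), and 1 lower, Lrrc8c (-2.36 ± 0.72), of 29, and gap junction genes 0 of 9. Lrrc8c was no longer called without EEC replicate 2 or 3 or non-EEC replicate 2 or 3 (adjusted p = 0.113 to 0.142). Sensory cation channels called higher numbered 5 without non-EEC replicate 2 to 7 without EEC replicate 1 or 2 or non-EEC replicate 1, with 5 of 8 called in all 6 runs. Sensory cation channels called lower numbered 0 without EEC replicate 1 or 3 or non-EEC replicate 2 to 2 without EEC replicate 2. Ionotropic transmitter receptors called higher numbered 5 without non-EEC replicate 2 to 8 without EEC replicate 1 or 2 or non-EEC replicate 1. Chloride and anoctamin channels called higher numbered 1 without EEC replicate 1 or 3 or non-EEC replicate 2 or 3 to 4 without non-EEC replicate 1. Grik4 was no longer called without non-EEC replicate 2 (adjusted p = 0.052), Grid1 without EEC replicate 1 or non-EEC replicate 1, 2 or 3 (adjusted p = 0.0767 to 0.119), Grin2c without EEC replicate 2 or 3 or non-EEC replicate 1, 2 or 3 (adjusted p = 0.0692 to 0.129) and Chrnb2 without EEC replicate 1 or 3 or non-EEC replicate 2 or 3 (adjusted p = 0.0515 to 0.113).

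**Figure D4:**
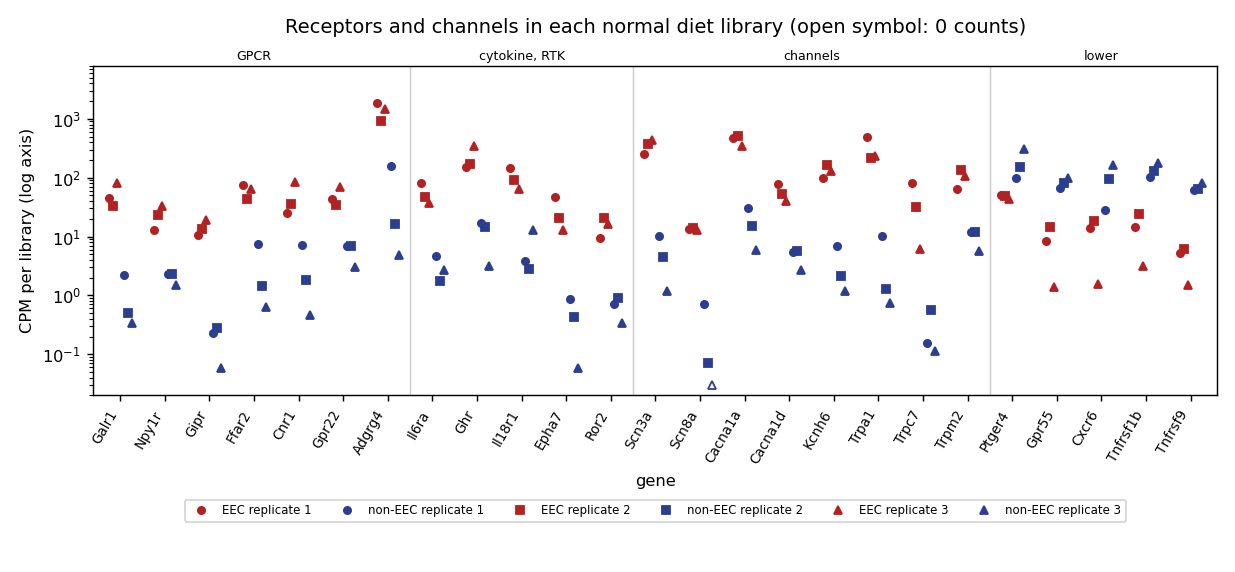
CPM (vertical log axis) of receptors and channels (horizontal axis) in the 3 EEC (red) and 3 non-EEC (blue) libraries, 1 symbol per library. Scn3a lies at 255, 373 and 439 CPM in EEC and at 1.2 to 10 CPM in non-EEC, and the 5 rightmost genes have their blue symbols above the red ones.

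Cell adhesion genes of synapses were higher in 17 of 47 members and lower in 0, and classical cadherins in 0 of 15. Ncam2, a neural adhesion molecule, had 114, 76.1 and 77.5 CPM in EEC and 6.69, 1.77 and 0.458 CPM in non-EEC (4.92 ± 0.85, adjusted p = 0.00351). Clstn2, a calsyntenin of synapses, had 19.7, 5.8 and 11.2 CPM in EEC and 0.856, 0.0708 and 0.115 CPM in non-EEC (5.16 ± 0.88, adjusted p = 0.00326). Nlgn2, a neuroligin of inhibitory synapses, had 13.8, 17.5 and 18.5 CPM in EEC and 2.96, 3.61 and 4.18 CPM in non-EEC (2.21 ± 0.35, adjusted p = 0.0022). The other members included Flrt1, Igsf8, Nfasc, Lrrn1, Lrrtm3, Lrfn4, Igsf21, Tenm3, Cntnap2, Tenm4, Igsf11, Cntn5 and Cntnap5b. Where both groups had over 3 counts, the log2 fold changes of these other members were 2.51 to 5.21. The count ran from 11 without non-EEC replicate 2 or 3 to 17 without EEC replicate 1. Of the 47 tested members 39 had a positive difference, against 8421 of 17087 genes tested. Of the 17 called, 14 were also called higher under the high fat diet, against 67.9% of all higher genes. Of the higher synaptic adhesion genes, 10 of 17 were called in all 6 runs leaving out a library. Cadherins called higher numbered 0 without EEC replicate 2 or 3 or non-EEC replicate 2 or 3 to 3 without non-EEC replicate 1.

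Protocadherins were higher in 9 of 22 members. Pcdhgc4 had 156, 141 and 96 CPM in EEC and 32.7, 20 and 16 CPM in non-EEC (2.52 ± 0.50, adjusted p = 0.00703), a value that is uncertain because genes of the gamma cluster share exons. Pcdhb19 had 6.01, 2.77 and 3.7 CPM in EEC and 0, 0 and 0 CPM in non-EEC, with 0 counts in the non-EEC group (at least 61.7-fold higher), and Pcdh9 had 2.25, 4.24 and 3.51 CPM in EEC and 0, 0.0708 and 0 CPM in non-EEC. The others were Fat4, Pcdhb22, Pcdhb17, Pcdhb13, Pcdhb20 and Pcdhb16, and reads of the similar beta cluster genes may be shared among them. Guidance genes were higher in 12 of 37 and lower in 1. Nrp1, the neuropilin that binds semaphorins and VEGF, had 129, 49.1 and 68.7 CPM in EEC and 9.42, 2.41 and 1.78 CPM in non-EEC (4.19 ± 0.66, adjusted p = 0.00225). Plxna3, a semaphorin receptor, had 19.2, 21.5 and 23.6 CPM in EEC and 1.71, 2.9 and 1.37 CPM in non-EEC (3.42 ± 0.48, adjusted p = 0.0011). The ligand Sema3f had 5.45, 7.8 and 4.14 CPM in EEC and 0.156, 0.142 and 0.401 CPM in non-EEC (4.55 ± 0.78, adjusted p = 0.0033). Further plexins, netrin and slit genes followed: Plxnc1, Unc5a, Slit1, Neo1, Plxnb1, Ntn4, Plxnd1, Sema3c and Sema3d. Sema4d, a semaphorin of lymphocytes, was lower (-2.92 ± 0.55). The number higher ran from 5 without non-EEC replicate 2 to 17 without non-EEC replicate 1. Of the higher protocadherins, 5 of 9 were called in all 6 runs leaving out a library. Of the higher guidance genes, 5 of 12 were called in all 6 runs leaving out a library.

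Surface genes used for labelling gut epithelial cells were higher in 9 of 18 members and lower in 1. The higher members were Cd24a (2.88 ± 0.68), Slc18a1, Cd63 (1.84 ± 0.46), Prom1 (1.84 ± 0.47), Cd59a (2.88 ± 0.84), Slc18a2, Cd200 (1.30 ± 0.37), Cd55 (1.52 ± 0.43) and Sstr5. Of these, Slc18a1 and Slc18a2 encode vesicular monoamine transporters rather than proteins of the cell surface. The lower member was Cd38 (-1.75 ± 0.53, adjusted p = 0.0465). Epcam, the general epithelial adhesion molecule, had 980.2, 565 and 875 CPM in EEC and 1034, 505 and 219 CPM in non-EEC, with overlapping groups (0.46 ± 0.48, adjusted p = 0.572). Among CD antigens as a whole 8 of 73 were higher and 20 lower. Cd177 had 194, 155 and 191 CPM in EEC and 8.09, 6.65 and 1.6 CPM in non-EEC (5.05 ± 0.74, adjusted p = 0.00149). Cd276, an immune checkpoint protein, had 35.9, 36 and 37.4 CPM in EEC and 5.45, 2.48 and 0.859 CPM in non-EEC (3.64 ± 0.70, adjusted p = 0.00632). Cd160, a receptor of intraepithelial lymphocytes, was lower, with 20.5, 38.7 and 7.25 CPM in EEC and 107, 199 and 358 CPM in non-EEC (-3.33 ± 0.63, adjusted p = 0.00597). Of the mucins and the Ly6 family 4 of 28 were higher and 4 lower. Ceacam10 had 18.3, 64.1 and 139 CPM in EEC and 2.96, 4.53 and 1.78 CPM in non-EEC (4.58 ± 0.82, adjusted p = 0.00426). Lypd1, a Ly6 family protein that binds nicotinic receptors, had 14.9, 16 and 17.1 CPM in EEC and 3.58, 3.54 and 1.95 CPM in non-EEC (2.41 ± 0.46, adjusted p = 0.00632). Cd24a, Prom1, Cd59a, Cd200, Cd63, Cd55 and Cd38 were named after their values were seen. Labelling surface genes called higher numbered 3 without non-EEC replicate 2 to 9 without non-EEC replicate 1. CD antigens called higher numbered 3 without non-EEC replicate 2 to 9 without non-EEC replicate 1. CD antigens called lower numbered 3 without non-EEC replicate 3 to 27 without non-EEC replicate 1. Mucin and Ly6 genes called higher numbered 2 without EEC replicate 3 or non-EEC replicate 2 to 10 without non-EEC replicate 1. Mucin and Ly6 genes called lower numbered 0 without non-EEC replicate 2 or 3 to 4 without non-EEC replicate 1. Cd24a was no longer called without non-EEC replicate 2 (adjusted p = 0.0636), Cd63 and Prom1 without EEC replicate 3 or non-EEC replicate 2 (adjusted p = 0.0509 to 0.0718), Cd59a without EEC replicate 1 or 3 or non-EEC replicate 2 or 3 (adjusted p = 0.0688 to 0.126), Cd200 without EEC replicate 2 or 3 or non-EEC replicate 1, 2 or 3 (adjusted p = 0.0682 to 0.11), Cd55 without EEC replicate 2 or 3 or non-EEC replicate 2 or 3 (adjusted p = 0.0583 to 0.109) and Cd38 without EEC replicate 1, 2 or 3 or non-EEC replicate 2 or 3 (adjusted p = 0.0548 to 0.157).

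Integrins were higher in 2 of 24 (8.33%, near the 7.91% of all genes tested) and lower in 7 (29.2%, against 4.9%). Itgb1, the common beta chain, had 309.6, 247 and 354 CPM in EEC and 123, 95.7 and 58.9 CPM in non-EEC (1.71 ± 0.33, adjusted p = 0.00632). Itga9 had 24.7, 28.1 and 16.3 CPM in EEC and 4.9, 1.34 and 1.15 CPM in non-EEC (3.23 ± 0.62, adjusted p = 0.00599). Itgal, the leukocyte chain of LFA-1, had 4.98, 12 and 9.05 CPM in EEC and 58, 70.4 and 153 CPM in non-EEC (-3.43 ± 0.63, adjusted p = 0.00487), and Itgb7, Itga1, Itgb2, Itgae and Itgav were lower with it. The lower integrins thus included the chains Itgal, Itgb2, Itgae and Itgb7 of lymphocytes. Claudins and tight junction genes were higher in 2 of 24 (8.33%), also near that share. Cldn1 had 10.5, 6.41 and 3.36 CPM in EEC and 0, 0.425 and 0.229 CPM in non-EEC (4.88 ± 1.0, adjusted p = 0.00868). Cldn9 had 16.5, 4.76 and 3.86 CPM in EEC and 0.311, 0.283 and 0 CPM in non-EEC (5.39 ± 1.31, adjusted p = 0.0187). Of the tetraspanins 4 were higher and 4 lower of 26, and Tspan12 had 89.7, 70.8 and 70.4 CPM in EEC and 19, 14.8 and 5.79 CPM in non-EEC (2.55 ± 0.53, adjusted p = 0.00932). Receptor-type phosphatases were higher in 5 of 18 members. Ptprn2, a granule membrane protein, had 944, 763 and 824 CPM in EEC and 94.1, 12.7 and 3.78 CPM in non-EEC (4.52 ± 0.94, adjusted p = 0.00917), and Ptprs and Ptpru were higher by 1.74 ± 0.33 and 3.14 ± 0.49. Cldn9 was no longer called without non-EEC replicate 2 or 3 (adjusted p = 0.0563 to 0.0595). Integrins called lower numbered 1 without non-EEC replicate 3 to 9 without non-EEC replicate 1, with 1 of 7 called in all 6 runs. Claudins and tight junction genes called higher numbered 1 without non-EEC replicate 2 or 3 to 11 without non-EEC replicate 1. Tetraspanins called higher numbered 1 without non-EEC replicate 2 to 7 without non-EEC replicate 1. Tetraspanins called lower numbered 0 without EEC replicate 2 or non-EEC replicate 2 or 3 to 4 without non-EEC replicate 1. Receptor-type phosphatases called higher numbered 4 without EEC replicate 2 or non-EEC replicate 2 to 9 without non-EEC replicate 1. Itgb2 was no longer called without EEC replicate 2 or 3 or non-EEC replicate 2 or 3 (adjusted p = 0.0734 to 0.088), Itgae without EEC replicate 1, 2 or 3 or non-EEC replicate 2 or 3 (adjusted p = 0.0586 to 0.0967) and Itgb7 without EEC replicate 3 or non-EEC replicate 3 (adjusted p = 0.0648 to 0.0725).

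Granins and processing enzymes were higher in 13 of 18 members, from 8 without non-EEC replicate 2 to 14 without non-EEC replicate 1. The 13 called under the normal diet were all called under the high fat diet, against 67.9% of all higher genes. Pcsk1, the convertase of prohormones, had 573, 373 and 429 CPM in EEC and 46.3, 8.28 and 2.58 CPM in non-EEC (4.59 ± 0.83, adjusted p = 0.00438). Pam, which amidates peptides, had 258, 215 and 252 CPM in EEC and 23.8, 12 and 7.39 CPM in non-EEC (4.07 ± 0.53, adjusted p = 8.50e-04). Scg5, the chaperone of Pcsk2, had 148, 74.7 and 168 CPM in EEC and 16, 3.25 and 2.23 CPM in non-EEC (4.19 ± 0.74, adjusted p = 0.00424). SNARE genes and regulators were higher in 9 of 40 and lower in 1. Snap25 had 518, 155 and 304 CPM in EEC and 17.9, 3.61 and 1.09 CPM in non-EEC (5.44 ± 0.91, adjusted p = 0.00309). The priming factor Unc13a had 63.4, 62 and 48.3 CPM in EEC and 11.8, 7.08 and 9.16 CPM in non-EEC (2.63 ± 0.32, adjusted p = 5.55e-04). Cplx1, a clamp of fusion, had 36.5, 20.1 and 20.8 CPM in EEC and 2.18, 0.708 and 0.0573 CPM in non-EEC (4.74 ± 0.89, adjusted p = 0.00561). Among the others Rims2, Cplx2, Stx1a, Unc13b and Snap91 were higher, whereas Unc13d, the priming factor of cytotoxic granules, was lower (-1.50 ± 0.44). Unc13d was no longer called without EEC replicate 1 or 3 or non-EEC replicate 2 or 3 (adjusted p = 0.103 to 0.169). Of the higher SNARE genes, 7 of 9 were called in all 6 runs leaving out a library.

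Synaptotagmins and their relatives were higher in 6 of 17 and lower in 2. Syt13 had 204, 112 and 166 CPM in EEC and 19.1, 3.4 and 0.63 CPM in non-EEC (4.39 ± 0.87, adjusted p = 0.00733). Sytl3 had 67.6, 68.6 and 14.6 CPM in EEC and 202, 305 and 479 CPM in non-EEC (-2.71 ± 0.53, adjusted p = 0.00671). Rab GTPases were higher in 5 of 52, near the background share, and lower in 4. Rab3c, a Rab of secretory vesicles, had 334, 278 and 368 CPM in EEC and 10.9, 2.69 and 1.2 CPM in non-EEC (6.06 ± 0.70, adjusted p = 5.00e-04). Rab36 had 37.9, 31 and 41.7 CPM in EEC and 1.63, 0.566 and 0.745 CPM in non-EEC (5.23 ± 0.52, adjusted p = 2.20e-04). Rab8b had 65.3, 64.1 and 45.3 CPM in EEC and 185, 349 and 542 CPM in non-EEC (-2.62 ± 0.45, adjusted p = 0.0035). Rab3c and Rab36 were nearly level among EEC libraries and did not overlap with non-EEC libraries. Of the vacuolar ATPase subunits, which acidify granules, 1 of 19 was called, Atp6v1b2 (1.94 ± 0.30, adjusted p = 0.00204). Both vesicular monoamine transporters were higher. Slc18a1 had 479, 259 and 233 CPM in EEC and 42.7, 6.58 and 2.86 CPM in non-EEC (4.22 ± 0.80, adjusted p = 0.00574). Slc18a2 had 139, 47.6 and 77.1 CPM in EEC and 13.5, 12 and 7.85 CPM in non-EEC (2.98 ± 0.42, adjusted p = 0.0011). Tph1, which makes serotonin, had 1373, 870.1 and 870.1 CPM in EEC and 107, 11.9 and 3.49 CPM in non-EEC (4.67 ± 0.95, adjusted p = 0.00854). Synaptotagmins called higher numbered 1 without non-EEC replicate 2 or 3 to 7 without non-EEC replicate 1. Rab GTPases called higher numbered 3 without EEC replicate 3 or non-EEC replicate 2 to 10 without non-EEC replicate 1. Rab GTPases called lower numbered 1 without EEC replicate 2 or 3 or non-EEC replicate 2 or 3 to 4 without EEC replicate 1.

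Gnao1, the G protein alpha subunit of neurons, had 144, 223 and 250.4 CPM in EEC and 13.2, 3.54 and 1.32 CPM in non-EEC (5.11 ± 0.72, adjusted p = 0.0011). Gng4 had 284, 215 and 269 CPM in EEC and 29.8, 2.97 and 2.46 CPM in non-EEC (4.45 ± 0.84, adjusted p = 0.00585), while Gngt2 had 22.6, 19.7 and 6.72 CPM in EEC and 59, 96.2 and 125 CPM in non-EEC (-2.52 ± 0.56, adjusted p = 0.0127). Of 27 G protein subunits 6 were higher and 1 lower. Adcy1, a calcium-stimulated adenylyl cyclase, had 73.9, 81.3 and 63 CPM in EEC and 3.19, 1.27 and 0.515 CPM in non-EEC (5.47 ± 0.54, adjusted p = 2.20e-04), and Adcy2 and Adcy8 were higher too (4.74 ± 0.96 and 3.89 ± 0.82). The phosphodiesterase Pde1c had 59, 69.6 and 53.6 CPM in EEC and 1.32, 3.33 and 3.78 CPM in non-EEC (4.42 ± 0.58, adjusted p = 8.60e-04). Pde11a, another phosphodiesterase, had 20.5, 51.5 and 37.6 CPM in EEC and 1.56, 3.61 and 3.38 CPM in non-EEC (3.67 ± 0.46, adjusted p = 7.19e-04). The cyclase Adcy7 and the phosphodiesterases Pde7a, Pde4a and Pde4b were lower (-2.86 to -1.56). Adcy7 and Pde7a were no longer called without EEC replicate 1 or 3 or non-EEC replicate 2 or 3 (adjusted p = 0.0794 to 0.179) and Pde4a and Pde4b without EEC replicate 1, 2 or 3 or non-EEC replicate 2 or 3 (adjusted p = 0.0692 to 0.151). Among RGS proteins, which end G protein signals, Rgs7 (4.88 ± 1.07) and Rgs17 (4.30 ± 0.98) were higher and Rgs3 (-2.36 ± 0.43) lower. G protein subunits called higher numbered 2 without non-EEC replicate 2 to 6 without EEC replicate 2 or non-EEC replicate 1. Rgs17 was no longer called without non-EEC replicate 2 (adjusted p = 0.0516).

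Keratins and other intermediate filaments were higher in 6 of 20 members and lower in 1. Neurofilament Nefm had 112, 43.4 and 69.4 CPM in EEC and 2.41, 1.2 and 0.515 CPM in non-EEC (5.78 ± 0.67, adjusted p = 5.00e-04). Nefl, the light chain, had 30.3, 23.5 and 27.2 CPM in EEC and 2.18, 2.62 and 2.46 CPM in non-EEC (3.47 ± 0.61, adjusted p = 0.00384). The related filament gene Ina had 19, 5.54 and 10.8 CPM in EEC and 0.623, 0.142 and 0.0573 CPM in non-EEC (5.44 ± 1.05, adjusted p = 0.0063). Nefh, the heavy chain, was the lower member, with 1.22, 1.47 and 0.373 CPM in EEC and 4.59, 6.93 and 12.3 CPM in non-EEC (-2.98 ± 0.91, adjusted p = 0.0475). Microtubule genes were higher in 10 of 34 members and lower in 0. Map1b, a microtubule-associated protein of axons, had 719.5, 569 and 638 CPM in EEC and 46.9, 11.5 and 1.72 CPM in non-EEC (5.0 ± 0.89, adjusted p = 0.00424). Map9 had 35.1, 52.3 and 82.5 CPM in EEC and 4.51, 2.62 and 1.89 CPM in non-EEC (4.24 ± 0.67, adjusted p = 0.00228). Tubb3, the neuronal tubulin, had 3.19, 5.28 and 8.09 CPM in EEC and 0, 0.0708 and 0 CPM in non-EEC, with 1 count in the non-EEC group. The list also held Dpysl5, Map1a, Tuba1a, Map6, Tubb2b, Dcx and Tubb2a. The motor Kif1a, which carries synaptic vesicle precursors, had 33.5, 36.8 and 47.2 CPM in EEC and 4.12, 0.849 and 0.344 CPM in non-EEC (4.49 ± 0.80, adjusted p = 0.00425). Kif12 had 15.9, 60.9 and 54.3 CPM in EEC and 2.41, 3.47 and 1.66 CPM in non-EEC (4.12 ± 0.68, adjusted p = 0.00291). The cilium motor chain Dync2li1 had 9.49, 9.27 and 5.29 CPM in EEC and 0.311, 0.142 and 0.172 CPM in non-EEC (5.22 ± 0.78, adjusted p = 0.00171). Several of these genes are also markers of enteric neurons. In the list of enteric glia and neuron markers, 7 of 14 passed the filter, and 5 of 7 of those tested were higher (71.4%, against 7.91% of all genes tested). The summed level was 616, 228 and 370 CPM in EEC and 35.3, 17.8 and 16 CPM in non-EEC. The higher members were Snap25, Elavl4, Tubb3, Uchl1 and Ret, and their number ran from 3 without EEC replicate 3 or non-EEC replicate 2 or 3 to 4 without EEC replicate 1 or 2 or non-EEC replicate 1. Of the 7 untested members, the neuropeptide gene Vip had 0 counts in all 6 libraries, the glial factor Sox10 had 0 counts in EEC, and the glial filament Gfap had 0, 2 and 1 counts in EEC. Of 6 stromal and endothelial markers 0 were called. The endothelial Pecam1 had 21.9, 32.1 and 23.9 CPM in EEC and 15.9, 30.7 and 39.8 CPM in non-EEC, with overlapping groups. The fibroblast gene Dcn had 7.89, 5.28 and 5.13 CPM in EEC and 4.12, 4.03 and 1.43 CPM in non-EEC (0.93 ± 1.28, adjusted p = 0.682), with each EEC library above the non-EEC libraries and no call. Intermediate filament genes called higher numbered 3 without non-EEC replicate 2 to 9 without non-EEC replicate 1. Microtubule genes called higher numbered 5 without non-EEC replicate 2 to 12 without non-EEC replicate 1, with 5 of 10 called in all 6 runs. Nefh was no longer called without EEC replicate 1, 2 or 3 or non-EEC replicate 2 or 3 (adjusted p = 0.0716 to 0.181), Uchl1 without EEC replicate 3 or non-EEC replicate 2 or 3 (adjusted p = 0.0697 to 0.084) and Ret without EEC replicate 1, 2 or 3 or non-EEC replicate 1, 2 or 3 (adjusted p = 0.0506 to 0.139).

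Neuronal RNA-binding and splicing regulators were higher in 12 of 32 members and lower in 1. Elavl4, a HuD-type stabiliser of neuronal transcripts, had 30.5, 8.57 and 5.47 CPM in EEC and 0, 0.0708 and 0 CPM in non-EEC, with 1 count in the non-EEC group. Nova2 had 7.52, 20.4 and 7.4 CPM in EEC and 0.7, 0.0708 and 0.0573 CPM in non-EEC (5.43 ± 0.92, adjusted p = 0.00311). Khdrbs3 had 19.5, 12.2 and 25.9 CPM in EEC and 1.63, 0.425 and 0.63 CPM in non-EEC (4.43 ± 0.58, adjusted p = 8.60e-04). The others were Celf6, Cpeb1, Rbfox2, Srrm3, Celf3, Msi1, Srrm4, Celf5 and Rbfox3, and the number ran from 7 without non-EEC replicate 2 or 3 to 16 without non-EEC replicate 1. Srrm4, a splicing factor of neuronal microexons, had 24.5, 0 and 1.27 CPM in EEC and 0, 0 and 0 CPM in non-EEC. EEC replicate 1 held most of its counts, and Srrm4 was no longer called without EEC replicate 1 or non-EEC replicate 2 or 3 (adjusted p = 0.0782 to 0.0825). Mbnl1 was lower (-1.99 ± 0.46). Rest, the repressor of neuronal genes outside neurons, chosen after its values were seen, had 8.83, 34.5 and 9.73 CPM in EEC and 96, 119 and 122 CPM in non-EEC (-2.67 ± 0.58, adjusted p = 0.0109). Its corepressor Rcor2 had 12, 23.6 and 21.5 CPM in EEC and 0.467, 1.77 and 2.18 CPM in non-EEC (3.68 ± 0.77, adjusted p = 0.00922). All 3 EEC libraries of Rest lay below all non-EEC libraries, in which Rest was level at 96 to 122 CPM. Mbnl1 was no longer called without EEC replicate 3 or non-EEC replicate 2 or 3 (adjusted p = 0.0585 to 0.0732). Of the higher neuronal RNA-binding and splicing regulators, 6 of 12 were called in all 6 runs leaving out a library.

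Rest binds an element made of a left and a right part. Promoters were searched for TTCAGCACC and GGACAGCGC, the cores of these parts, on both strands. The windows ran from 250 bases before to 50 bases after each start of transcription, from RefSeq on GRCm38.p6. TTCAGCACC lay in 13 of 1313 windows of higher genes (0.99%) and 4 of 797 windows of lower genes (0.502%), against 0.371% of all 32851 windows and 0.362% of those of tested genes. GGACAGCGC lay in 13 (0.99%) and 3 (0.376%), against 0.405% and 0.632%. Among windows of called genes, both parts lay in the same window for Ptprn2 and Unc13a, which were higher. How many windows of other genes hold both parts was not counted, so no background share stands beside these 2. The parts abutted in Ptprn2, with 0 bases between them, and were 8 bases apart in Unc13a, both on the strand opposite to the gene. These 2 windows and those of 4 genes with 1 part are shown, with matches in capitals, each 5′ to 3′ on the gene's strand. The 4 were picked by hand from genes described above. Celsr3, Hrh3, Cntnap5b and Sema3d, also described and with 1 part, are not shown. A match is a description of letters and was not tested as a binding site.
Ptprn2 (chr12:116485470-116485769, plus strand): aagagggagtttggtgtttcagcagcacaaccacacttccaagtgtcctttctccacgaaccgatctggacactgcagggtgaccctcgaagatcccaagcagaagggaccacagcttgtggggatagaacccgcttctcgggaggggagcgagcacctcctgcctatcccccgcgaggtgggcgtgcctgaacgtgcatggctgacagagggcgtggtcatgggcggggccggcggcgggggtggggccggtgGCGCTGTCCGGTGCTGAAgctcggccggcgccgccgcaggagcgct
Unc13a (chr8:71671708-71672007, minus strand): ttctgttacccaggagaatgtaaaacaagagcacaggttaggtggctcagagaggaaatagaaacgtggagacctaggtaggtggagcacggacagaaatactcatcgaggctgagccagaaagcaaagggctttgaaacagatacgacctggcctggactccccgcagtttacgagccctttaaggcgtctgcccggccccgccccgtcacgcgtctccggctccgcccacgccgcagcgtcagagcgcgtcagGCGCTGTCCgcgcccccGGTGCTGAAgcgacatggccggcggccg
Kcnh6 (chr11:106007898-106008197, plus strand): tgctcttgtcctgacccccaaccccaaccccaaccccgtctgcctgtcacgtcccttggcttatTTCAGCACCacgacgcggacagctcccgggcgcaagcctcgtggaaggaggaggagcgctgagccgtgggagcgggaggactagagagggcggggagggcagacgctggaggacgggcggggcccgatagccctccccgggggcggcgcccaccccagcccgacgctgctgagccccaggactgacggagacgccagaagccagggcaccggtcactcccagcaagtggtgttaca
Dner (chr1:84696172-84696471, minus strand): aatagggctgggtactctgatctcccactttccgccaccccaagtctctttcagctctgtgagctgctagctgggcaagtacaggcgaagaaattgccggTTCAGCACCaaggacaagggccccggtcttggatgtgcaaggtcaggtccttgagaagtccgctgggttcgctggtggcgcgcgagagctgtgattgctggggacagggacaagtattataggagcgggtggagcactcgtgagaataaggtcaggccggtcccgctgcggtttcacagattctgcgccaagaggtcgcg
Il6ra (chr3:89913147-89913446, minus strand): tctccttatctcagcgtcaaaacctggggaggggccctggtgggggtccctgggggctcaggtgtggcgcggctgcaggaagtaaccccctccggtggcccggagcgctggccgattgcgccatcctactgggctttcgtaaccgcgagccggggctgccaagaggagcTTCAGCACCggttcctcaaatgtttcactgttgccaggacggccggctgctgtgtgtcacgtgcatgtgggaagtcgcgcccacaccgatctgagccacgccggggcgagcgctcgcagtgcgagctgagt
Slc18a2 (chr19:59260628-59260927, plus strand): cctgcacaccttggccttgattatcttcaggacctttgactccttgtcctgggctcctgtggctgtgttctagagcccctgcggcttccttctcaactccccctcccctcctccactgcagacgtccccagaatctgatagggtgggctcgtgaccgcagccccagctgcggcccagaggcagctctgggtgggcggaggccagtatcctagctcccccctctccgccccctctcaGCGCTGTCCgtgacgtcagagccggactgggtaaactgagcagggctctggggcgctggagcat

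Other motifs differed by a few percentage points between the windows. The 15 searches also held GTTGCC, a core of RFX sites, found in 15.5% of windows of higher genes and 12.2% of those of lower genes against 12.7% of those of tested genes. The E-box CAGATG, of the type bound by Neurod1, was in 13.6% for higher and 15.1% for lower genes against 12.5%. GGAAGTG, an ETS-type motif, was in 8.07% for higher and 16.2% for lower genes against 13.7%.

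Neurotransmitter and amino acid transporters were higher in 9 of 53 and lower in 1. Slc38a11, an amino acid transporter, had 127, 139.9 and 156 CPM in EEC and 6.15, 5.59 and 0.859 CPM in non-EEC (5.07 ± 0.59, adjusted p = 5.00e-04). The sodium-calcium exchanger Slc8a1 had 39.9, 18.3 and 19.2 CPM in EEC and 2.33, 0.354 and 0.401 CPM in non-EEC (4.66 ± 0.76, adjusted p = 0.00272). Of 18 sugar transporters 1 was called, Slc2a3, which was lower with 11.5, 18.2 and 7.18 CPM in EEC and 58.4, 90.4 and 129 CPM in non-EEC (-2.92 ± 0.52, adjusted p = 0.00424). Cytochrome P450 genes were higher in 8 of 44 members. Of these 8, 1 was also called higher under the high fat diet, against 67.9% of all higher genes. The median of the tested members was 1.02 under the normal diet and -0.61 under the high fat diet. Cyp4b1 had 119.8, 146 and 236 CPM in EEC and 26.2, 5.02 and 3.61 CPM in non-EEC (3.85 ± 0.68, adjusted p = 0.00424). Gstt1, a glutathione transferase, had 285, 209 and 259.8 CPM in EEC and 22.8, 9.62 and 6.3 CPM in non-EEC (4.29 ± 0.53, adjusted p = 6.56e-04). Acsl6, a long-chain acyl-CoA synthetase of neurons, had 136, 58.3 and 83.7 CPM in EEC and 4.98, 1.56 and 0.286 CPM in non-EEC (5.36 ± 0.77, adjusted p = 0.00126). The fatty acid binding protein Fabp5 had 70.9, 71.5 and 139.7 CPM in EEC and 13.2, 6.01 and 8.88 CPM in non-EEC (3.33 ± 0.53, adjusted p = 0.00238). Both genes had no overlap between groups. Transmitter and amino acid transporters called higher numbered 6 without EEC replicate 3 or non-EEC replicate 3 to 14 without non-EEC replicate 1. Cytochrome P450 genes called higher numbered 2 without non-EEC replicate 2 to 18 without non-EEC replicate 1.

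Secreted proteins beyond the hormones were higher for a few genes. Fgf14, an intracellular relative of fibroblast growth factors that binds sodium channels, had 59.6, 65 and 69.8 CPM in EEC and 3.11, 0.637 and 0 CPM in non-EEC (5.73 ± 0.96, adjusted p = 0.00302). Igfbp3, an IGF-binding protein, had 17.3, 34.6 and 46.1 CPM in EEC and 1.32, 0.495 and 0.115 CPM in non-EEC (5.69 ± 1.03, adjusted p = 0.0045). Of neuropeptide genes 6 of 18 were higher. Ucn3, urocortin 3, had 453, 65 and 54.3 CPM in EEC and 12.1, 0.849 and 0.401 CPM in non-EEC (5.44 ± 1.18, adjusted p = 0.0113), with EEC replicate 1 far above the other 2. Nxph1, a neurexin ligand, had 3.29, 12.8 and 19.5 CPM in EEC and 0.233, 0.142 and 0 CPM in non-EEC (6.56 ± 1.11, adjusted p = 0.0045). Vgf had 25, 8.23 and 18.5 CPM in EEC and 2.02, 0.0708 and 0.573 CPM in non-EEC (4.29 ± 0.86, adjusted p = 0.00747). Reg4, a lectin of enteroendocrine and goblet cells, had 2810.1, 1029 and 1051 CPM in EEC and 306, 27.3 and 9.39 CPM in non-EEC (3.84 ± 1.03, adjusted p = 0.0291). Reg4 was no longer called without EEC replicate 1 or non-EEC replicate 2 (adjusted p = 0.0729 to 0.0874). Fxyd3 was the only goblet list member called higher, with 190.3, 131 and 156 CPM in EEC and 33.6, 8.49 and 3.09 CPM in non-EEC (3.41 ± 0.72, adjusted p = 0.01).

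Among all lists, Gimap GTPases and T cell markers had the largest shares of members lower in EEC. T cell markers were lower in 13 of 19 members, against 4.9% of all genes tested. Their number ran from 3 without EEC replicate 3 or non-EEC replicate 3 to 15 without non-EEC replicate 1. All 13 had a negative difference under the high fat diet, and 2 were called lower there, against 75.3% and 9.9% of all lower genes. Thy1 had 15.7, 19.1 and 2.36 CPM in EEC and 104, 153 and 166 CPM in non-EEC (-3.51 ± 0.63, adjusted p = 0.00426). The T cell receptor gene Trbc1 had 6.01, 17.3 and 4.73 CPM in EEC and 51.8, 121 and 192 CPM in non-EEC (-3.70 ± 0.77, adjusted p = 0.00913). Cd247, a chain of the T cell receptor complex, had 8.08, 8.14 and 2.71 CPM in EEC and 44.6, 62.9 and 115 CPM in non-EEC (-3.57 ± 0.76, adjusted p = 0.01). EEC replicate 3 held the fewest of these transcripts among EEC libraries. Gimap GTPases, which act in lymphocyte survival, were lower in 7 of 8 (87.5%, against 4.9% of all genes tested). Their number ran from 2 without EEC replicate 1 or 3 or non-EEC replicate 2 or 3 to 7 without non-EEC replicate 1. Gimap3 had 15.6, 18 and 5.22 CPM in EEC and 74.8, 88.2 and 156 CPM in non-EEC (-3.04 ± 0.67, adjusted p = 0.0125). Gata3, a T cell factor, had 1.13, 2.17 and 0.809 CPM in EEC and 7.63, 21.1 and 45.6 CPM in non-EEC (-4.19 ± 0.95, adjusted p = 0.0139). Irf4 had 0, 3.98 and 4.04 CPM in EEC and 16.6, 28.9 and 88.4 CPM in non-EEC (-4.03 ± 1.24, adjusted p = 0.0485). The receptor Ncr1 of natural killer cells had 0 counts in EEC and at least 23.4-fold more in non-EEC. The mast cell protease Mcpt2 had 0.658, 0 and 0 CPM in EEC and 87.7, 70.7 and 49.2 CPM in non-EEC (-8.64 ± 1.70, adjusted p = 0.00706). The similar Mcpt1 had 0.188, 0 and 0 CPM in EEC and 187, 85.7 and 76 CPM in non-EEC, from 2 counts in EEC. Immunoglobulin segments Igkv12-46 (-7.59 ± 1.69) and Igkv10-96 (-5.24 ± 1.57) were lower, with reads that may be shared with similar segments. Gata3 was no longer called without EEC replicate 3 or non-EEC replicate 3 (adjusted p = 0.0572 to 0.0769), Irf4 without EEC replicate 1, 2 or 3 or non-EEC replicate 2 or 3 (adjusted p = 0.0666 to 0.192), Igkv12-46 without non-EEC replicate 3 (adjusted p = 0.0665) and Igkv10-96 without EEC replicate 1 or 3 or non-EEC replicate 2 or 3 (adjusted p = 0.0893 to 0.119).

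Antigen processing genes were lower in 10 of 23 members, from 2 without non-EEC replicate 3 to 13 without non-EEC replicate 1. Of the 10, 9 had a negative difference under the high fat diet and 1 was called lower there, against 75.3% and 9.9% of all lower genes. The immunoproteasome subunit Psmb9 had 83, 50.6 and 71.8 CPM in EEC and 262, 208 and 370.4 CPM in non-EEC (-2.03 ± 0.37, adjusted p = 0.00466). The subunit Psmb8 had 41.2, 26.5 and 33.6 CPM in EEC and 93.5, 104 and 175 CPM in non-EEC (-1.88 ± 0.35, adjusted p = 0.00545), and H2-M3, Tap2, Psmb10, H2-Q7, Tap1, H2-K1 and Nlrc5 were lower with them. Plcg2, a phospholipase of tuft and immune cells, had 19, 24.3 and 11.2 CPM in EEC and 79.2, 83 and 116 CPM in non-EEC (-2.35 ± 0.42, adjusted p = 0.00424). Ribosomal protein genes were lower in 11 of 76 and higher in 0, with a median of -0.96, from 0 without non-EEC replicate 3 to 25 without non-EEC replicate 1. Rps23 had 110, 104 and 151 CPM in EEC and 256, 342 and 469 CPM in non-EEC (-1.54 ± 0.36, adjusted p = 0.0163). Rps23 was no longer called without EEC replicate 2 or non-EEC replicate 2 or 3 (adjusted p = 0.0516 to 0.0752), and counts of ribosomal genes are uncertain because of their many pseudogenes. Cell cycle genes were lower in 6 of 20 (30%) and respiratory chain genes in 1 of 88 (1.14%), against 4.9% of all genes tested. Mitochondrially encoded genes had a median of 1.02, and 0 of 12 were called. Of the lower antigen processing genes, 2 of 10 were called in all 6 runs leaving out a library. Cell cycle genes called lower numbered 0 without non-EEC replicate 2 to 5 without non-EEC replicate 1.

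The same contrast in the high fat diet libraries, which share no library with it, gave 1748 higher and 645 lower genes. Of the 1351 genes higher under the normal diet 1276 (94.4%) had a positive difference there and 918 (67.9%) were called, which is 52.5% of the 1748. Of the 838 lower genes 631 (75.3%) had a negative difference and 83 (9.9%) were called, or 12.9% of the 645. Of all tested genes 50.1% had a positive difference under the high fat diet. The difference between diets was called for 8 genes in the positive direction (0.0468%), larger under the normal diet, and 77 in the negative (0.451%). The aldo-keto reductase Akr1c13 had 159.7, 101 and 184 CPM in EEC and 32.5, 24.8 and 16.3 CPM in non-EEC under the normal diet (2.59 ± 0.39) and 144, 90.8 and 149 CPM in EEC and 164, 125 and 233 CPM in non-EEC under the high fat diet (-0.44 ± 0.36). Akr1c19, another member of that family, had 42.3, 39.2 and 61.4 CPM in EEC and 12.9, 9.98 and 3.04 CPM in non-EEC under the normal diet (2.47 ± 0.49) and 43.8, 68.7 and 51.2 CPM in EEC and 114, 151 and 248 CPM in non-EEC under the high fat diet (-1.65 ± 0.47). In both genes the EEC libraries of the diets were close, and the non-EEC libraries were higher under the high fat diet. The sulfotransferase Sult1d1 (1.93 ± 0.39 against -1.14 ± 0.38) and Pgap1 (2.27 ± 0.32 against 0.01 ± 0.30) also had larger differences under the normal diet. In the negative direction, Ptgs2, the inducible prostaglandin synthase, had 0.094, 0.866 and 1.15 CPM in EEC and 4.67, 1.63 and 1.49 CPM in non-EEC under the normal diet (-1.79 ± 0.84) and 31.6, 29 and 58.5 CPM in EEC and 0.121, 0.127 and 1.25 CPM in non-EEC under the high fat diet (6.37 ± 1.01). The water and glycerol channel Aqp9 had 1.6, 3.03 and 4.38 CPM in EEC and 0.389, 0.708 and 0.802 CPM in non-EEC under the normal diet (2.23 ± 0.61) and 12.4, 13.8 and 14.3 CPM in EEC and 0, 0 and 0 CPM in non-EEC under the high fat diet. Stum had 4.32, 6.67 and 8.27 CPM in EEC and 0.545, 0.495 and 0.458 CPM in non-EEC under the normal diet (3.67 ± 0.61) and 23.9, 8.25 and 18.8 CPM in EEC and 0, 0 and 0 CPM in non-EEC under the high fat diet. For these 3 genes the high fat diet EEC libraries held most of the transcripts. The number of genes whose difference between diets was called was 0 without EEC replicate 2 or non-EEC replicate 2 of the normal diet or without EEC replicate 1 or 3 or non-EEC replicate 2 of the high fat diet. It was 842 positive and 458 negative without non-EEC replicate 1 of the normal diet.

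**Figure D5:**
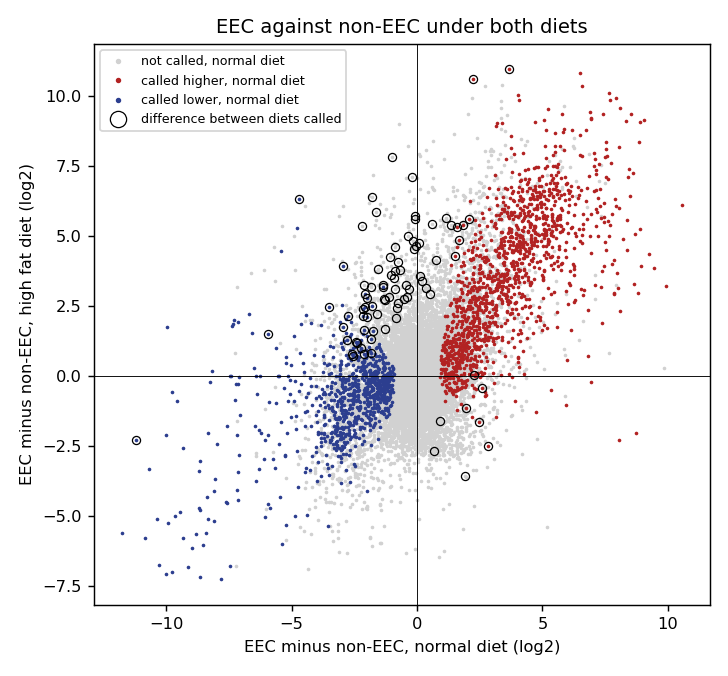
EEC minus non-EEC differences (log2) of 17087 genes under the normal diet (horizontal axis) and the high fat diet (vertical axis), 1 point per gene. Red and blue points were called higher and lower under the normal diet, black circles mark the 85 genes whose difference between diets was called, and 94.4% of the red points lie above 0 on the vertical axis.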

How the data were processed

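RNA of sorted villus cells was sequenced in 12 libraries, 3 in each of 4 groups. The deposited table holds raw read counts per gene. Per the submitters' processing notes, which give no order, the authors used CASAVA 1.8.2, TopHat2 2.0.10, Bowtie2 2.1.0 and HTSeq 0.5.4p3 with the mm10 genome. Neither the annotation release nor the strand setting of the counting is stated by the sources at hand, and reads of overlapping and antisense genes, and of near-identical copies, may be shared or lost. Gene symbols, biotypes and coordinates (GRCm38, the mm10 assembly) were taken from GENCODE vM21, which held 37607 of the 39086 identifiers (96.2%).

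Counts were filtered with filterByExpr, scaled by TMM and fitted with edgeR 4.0.16 (R 4.3.3, limma 3.58.1) over all 12 libraries as 4 groups, which left 8 residual degrees of freedom and a common biological coefficient of variation of 0.536. The quasi-likelihood test gave EEC minus non-EEC under each diet and the difference between diets, with Benjamini-Hochberg adjustment over 17087 genes and a threshold of 0.05. The method was tested on simulated counts. Libraries of one group differed from each other beyond sampling noise. Alternatives were RLE and upper quartile scaling, robust estimation, no filter, a minimum of 5 CPM in 3 libraries, limma-voom with quality weights, DESeq2 1.42.0, a replicate block, the 6 normal diet libraries alone and each library left out.

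The comparison, the 94 lists and their members were chosen with earlier results of these data known, so lists are described by counts and medians without a test. Membership errors in the MHC class I, Rab and tubulin lists and 1 misplaced cytokine were corrected after the data were seen. Named genes were the 12 genes in each direction with the largest change that were called, had a mean of 10 CPM or more, more than 3 counts in each group and no overlap, from each list the called members of smallest adjusted p, 3 at most, the hormone genes, the highest uncalled members of the marker lists, and up to 6 genes in each direction for the difference between diets. Other names, given as further members of a list, were chosen after their values were seen. Where a group had 0 counts, a fold is a lower bound against 3 counts over that group. Some genes of the lists are not reported here.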

Additional observations from a re-analysis of the deposited data

Results flagged for a closer look

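For 18 named genes the EEC minus non-EEC difference itself differed between the diets, by the edgeR quasi-likelihood test of the difference with Benjamini-Hochberg adjustment over 17087 genes. Values below are the normal diet difference minus the high fat diet difference on the log2 scale, with the standard error. In the positive direction Akr1c19 was at 4.11 ± 0.68, adjusted p = 0.0275, Flvcr1, a haem exporter, at 3.35 ± 0.67, adjusted p = 0.0478, Sult1d1 at 3.08 ± 0.54, adjusted p = 0.0316, Akr1c13 at 3.04 ± 0.53, adjusted p = 0.0316, Dlg3 at 2.54 ± 0.47, adjusted p = 0.0417 and Pgap1 at 2.27 ± 0.43, adjusted p = 0.0424. The non-EEC mean of Flvcr1 was 18.9 CPM under the normal diet and 182 CPM under the high fat diet, and its EEC means were 30.1 and 28.5 CPM.

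In the negative direction the values were -8.90 ± 1.77, adjusted p = 0.0473 for Mcpt1, -8.37 ± 1.27, adjusted p = 0.0275 for Aqp9, -8.16 ± 1.29, adjusted p = 0.0253 for Ptgs2, -7.55 ± 1.39, adjusted p = 0.0402 for Egr3 and -7.26 ± 1.28, adjusted p = 0.042 for Stum. Those of Mcpt1, Aqp9 and Stum rest on a group with 0 to 2 counts, and their fitted size depends on the prior count. The immediate early gene Egr3 had 0.188, 0.866 and 1.34 CPM in EEC and 4.59, 3.54 and 3.44 CPM in non-EEC under the normal diet and 4.36, 5.29 and 25.9 CPM in EEC and 0.362, 0 and 0.455 CPM in non-EEC under the high fat diet. The retinoid receptor Rarg was at -5.97 ± 1.13, adjusted p = 0.042, the sphingosine phosphate receptor S1pr2 at -4.86 ± 0.97, adjusted p = 0.0478, the prostaglandin synthase Hpgds at -4.51 ± 0.87, adjusted p = 0.0424 and the lymphocyte GTPase Gimap1 at -3.22 ± 0.62, adjusted p = 0.0424. These 4 genes were lower in EEC under the normal diet. Kcnh2, an ERG-type potassium channel, was at -3.71 ± 0.67, adjusted p = 0.0363, the tubulin Tuba1a at -3.51 ± 0.65, adjusted p = 0.0413 and the annexin Anxa5 at -2.78 ± 0.49, adjusted p = 0.0316, and these 3 genes were higher in EEC under both diets. Whether the marker sums of the non-EEC libraries, which differ between replicates, take part in these differences was not tested. For the difference between diets, 0 genes were called without EEC replicate 2 or without non-EEC replicate 2 of the normal diet. The values that follow are for the normal diet difference alone. In it Rarg was no longer called without non-EEC replicate 2 or 3 (adjusted p = 0.0526 to 0.0658). S1pr2 lost that call without EEC replicate 3 or non-EEC replicate 2 or 3 (adjusted p = 0.0506 to 0.113). Hpgds lost it without EEC replicate 1 or 3 or non-EEC replicate 2 or 3 (adjusted p = 0.0896 to 0.144). Kcnh2 lost it without EEC replicate 1 or 2 or non-EEC replicate 1 or 2 (adjusted p = 0.0662 to 0.119). Tuba1a and Anxa5 lost it without non-EEC replicate 2 (adjusted p = 0.0563 to 0.0635).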

How the results depend on the processing

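Under the normal diet 2189 genes were called, 1351 higher and 838 lower. With the 6 normal diet libraries alone there were 1157 (732 and 425), with DESeq2 3625 (2067 and 1558) and with limma-voom 5140 (2719 and 2421). Leaving out each library gave 954 to 3041 genes, 701 to 1935 higher and 215 to 1106 lower. Both scalings, both filters and robust estimation stayed within 1.5 times. An unadjusted p below 0.05 was reached by 4889 genes.

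For the difference between diets 85 genes were called, 8 positive and 77 negative. RLE scaling gave 14 positive, and the 5 CPM filter 17 positive. Without a filter there were 362 (107 and 255), with DESeq2 1046 (455 and 591) and with limma-voom 2183 (1220 and 963). Leaving out each library gave 0 to 1300 genes, 0 to 842 positive and 0 to 458 negative. The cause of these changes was not tested.

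Of 392 named genes called under the normal diet, 237 kept the call without non-EEC replicate 2, 250 without non-EEC replicate 3, 286 without EEC replicate 3 and 248 of 377 with the 6 normal diet libraries alone. The other alternatives kept 322 or more, and 0 of these genes changed direction under any alternative. Anpep and Pecam1, not called, changed sign: leaving out each library put Anpep between -0.30 and 2.34 (-0.02 without EEC replicate 1 and -0.22 without non-EEC replicate 2) and Pecam1 between -0.44 and 0.21. The median of all genes was -0.02 under TMM and -0.01 under RLE scaling.

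The labels do not say whether replicate numbers pair the libraries, and the main fit used no pairing. Deviations of same-numbered EEC and non-EEC libraries correlated at 0.142, 0.227 and -0.013 under the normal diet and 0.247, 0.239 and 0.234 under the high fat diet. Libraries of unlike number correlated at -0.204 to -0.0355 under the high fat diet, below every same-numbered pair. Under the normal diet the same-numbered value was the highest for EEC replicates 1 and 2. There EEC replicate 3 correlated more with non-EEC replicate 1 (0.0148) than with its own number. With the replicate block 1373 genes were higher and 772 lower, 20 and 64 for the difference between diets, and 339 of the 392 named genes kept their call.

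Total counts of 9543183 to 29054281 limit genes of low level, and 3 libraries a group leave wide errors.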

Other observations

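Kinases and inhibitors of calcium signalling were among the families with more higher members than the 7.91% of all genes tested. Calcium/calmodulin and PAK kinases were higher in 6 of 24 members and lower in 0. Camk1g, a calmodulin kinase of neurons, had 8.64, 0.346 and 0.84 CPM in EEC and 0, 0 and 0.115 CPM in non-EEC, from 2 counts in non-EEC, and EEC replicate 1 held most of its transcripts. Camk2n2, an inhibitor of CaMKII, had 1.88, 6.93 and 9.52 CPM in EEC and 0, 0.708 and 0.115 CPM in non-EEC (4.45 ± 1.08, adjusted p = 0.019). Of the ABC transporters 4 of 39 were higher (10.3%, against 7.91% of all genes tested). Among them was Abcc12, with 4.51, 10.1 and 22.7 CPM in EEC and 1.48, 0.283 and 0 CPM in non-EEC (4.43 ± 1.15, adjusted p = 0.0249). The number of higher ABC transporters ran from 0 without non-EEC replicate 2 to 8 without non-EEC replicate 1. Ion exchangers and cotransporters were higher in 6 of 52 (11.5%, against 7.91% of all genes tested) and lower in 1. Slc12a5, the potassium-chloride cotransporter of neurons, had 14.8, 7.1 and 5.57 CPM in EEC and 2.02, 0.92 and 0.286 CPM in non-EEC (3.09 ± 0.75, adjusted p = 0.019). Of the growth factors and secreted ligands 3 of 39 were higher and 3 lower. Each share was 7.69%, against 7.91% higher and 4.9% lower of all genes tested. Bmp4, a ligand of the BMP receptors, had 16.2, 1.91 and 1.03 CPM in EEC and 0.233, 0.0708 and 0 CPM in non-EEC (5.93 ± 1.47, adjusted p = 0.0203). Inhbb, a subunit of activins and inhibins, had 6.67, 0.606 and 2.55 CPM in EEC and 0.311, 0 and 0 CPM in non-EEC (4.96 ± 1.37, adjusted p = 0.0323). Pdgfb had 0, 0.0866 and 0 CPM in EEC and 1.25, 1.49 and 2.92 CPM in non-EEC, from 1 count in EEC, so that its groups did not overlap. Glutathione transferases and antioxidant genes were higher in 5 of 37 and lower in 2. Gpx3, a secreted glutathione peroxidase, had 561, 137 and 218 CPM in EEC and 76.6, 4.88 and 3.38 CPM in non-EEC (3.43 ± 1.03, adjusted p = 0.0447). Camk1g was no longer called without EEC replicate 1 or non-EEC replicate 1, 2 or 3 (adjusted p = 0.051 to 0.0947), Camk2n2 and Pdgfb without EEC replicate 3 or non-EEC replicate 3 (adjusted p = 0.0517 to 0.0736), Abcc12 without EEC replicate 3 or non-EEC replicate 2 (adjusted p = 0.0779 to 0.0914), Slc12a5 without non-EEC replicate 2 or 3 (adjusted p = 0.06 to 0.0702), Bmp4 without EEC replicate 1 or non-EEC replicate 2 or 3 (adjusted p = 0.0705 to 0.0773) and Inhbb and Gpx3 without EEC replicate 1 or 3 or non-EEC replicate 2 or 3 (adjusted p = 0.0536 to 0.12). Ion exchangers and cotransporters called higher numbered 1 without non-EEC replicate 2 or 3 to 10 without non-EEC replicate 1. Growth factors and secreted ligands called higher numbered 1 without EEC replicate 1 or non-EEC replicate 2 or 3 to 6 without non-EEC replicate 1. Growth factors and secreted ligands called lower numbered 0 without EEC replicate 3 to 3 without EEC replicate 2 or non-EEC replicate 1. Glutathione transferases and antioxidant genes called higher numbered 2 without EEC replicate 3 or non-EEC replicate 2 or 3 to 7 without non-EEC replicate 1.

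Cytotoxic lymphocyte genes were lower in 2 of 19 members (10.5%, against 4.9% of all genes tested). The number ran from 1 without EEC replicate 3 or non-EEC replicate 2 or 3 to 11 without non-EEC replicate 1. Their median difference was -3.02, beside -3.04 for the T cell markers, and 16 of the 19 lay lower in each EEC library than in each non-EEC library, as did 16.7% of all genes tested. Interferon response genes were lower in 6 of 42 (14.3%, against 4.9%) and higher in 1 (2.38%, against 7.91%). Gbp2, an interferon-induced GTPase, had 5.26, 6.58 and 2.33 CPM in EEC and 24.9, 36.2 and 59.6 CPM in non-EEC (-3.10 ± 0.89, adjusted p = 0.0364). MHC class II genes were lower in 2 of 9 (22.2%) and proteasome genes in 6 of 43 (14%), against 4.9% of all genes tested. Of the lower proteasome genes, Psmb8, Psmb9 and Psmb10 are the immunoproteasome subunits. The haemoglobin gene Hbb-bs, of 5 erythrocyte markers tested, was lower with 8.83, 9.01 and 0.653 CPM in EEC and 21.6, 73 and 144 CPM in non-EEC (-3.71 ± 1.08, adjusted p = 0.039). Paneth cell markers were called in 0 of 11, and of 12 stem and crypt cell markers the only call was Myc. Gbp2 and Hbb-bs were no longer called without EEC replicate 1, 2 or 3 or non-EEC replicate 2 or 3 (adjusted p = 0.0644 to 0.138). Interferon response genes called lower numbered 2 without non-EEC replicate 3 to 6 without non-EEC replicate 1. Proteasome genes called lower numbered 3 without EEC replicate 2 or non-EEC replicate 2 or 3 to 5 without non-EEC replicate 1. Psmb10 was no longer called without EEC replicate 1 or 2 or non-EEC replicate 3 (adjusted p = 0.0753 to 0.112) and Myc without EEC replicate 2 or 3 or non-EEC replicate 2 or 3 (adjusted p = 0.086 to 0.142).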
